A study of Mus musculus with 17 samples.

Results

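Cultured, non-senescent primary tubular epithelial cells (PTEC) of the mouse were compared with whole kidneys of young mice, in order to describe which nephron, stromal and immune transcripts the culture kept, lost or gained. The members are the libraries whose titles name PTEC at day 6 and kidney at 3 months, 4 and 3 of the 17 samples in the series. The study addressed senescence and ageing of renal tubular cells. It used bulk RNA sequencing of PTEC with and without γ-irradiation and of kidneys at 3 ages. Irradiated PTEC and older kidneys enter only where an alternative is named.

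Both groups were wild-type (labelled WT) and labelled as of C57BL/6Rj background, and neither received a treatment (labelled nA). PTEC had been grown in an epithelial growth medium (REGM2) from pieces of tubule that collagenase had freed from whole kidneys. The labels call them proximal tubular cells and give their age as day 6. They state neither age nor sex of the donor mice, nor whether the 4 cultures came from separate mice. Kidney samples were parts of the right kidney of 3-month-old male mice, snap frozen, and hold all cell types of the organ. Where replicates do not come from separate animals, p-values measure only the spread between these samples. Culture against tissue and the gene set used for counting go together in this design and cannot be told apart. The study's methods do not say whether cultures and kidneys shared a sequencing run, so a difference between runs cannot be told apart here either.

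The proximal tubule reabsorbs most of the filtered sodium, glucose, phosphate, amino acids and protein. Its cells carry a brush border, take up filtered protein through megalin and cubilin, run largely on fatty acid oxidation and produce glucose. Further along the nephron lie the thick ascending limb, the distal convoluted and connecting tubule and the collecting duct with its principal and intercalated cells. Tubular cells that are injured or placed in culture are known to flatten, to enter the cell cycle and to express Havcr1 (Kim-1), vimentin and keratins.

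Total counts were 26963442 to 32838856 in the PTEC libraries and 37311247 to 49471409 in the kidney libraries. Levels are given as CPM (counts scaled to library size, with TMM factors), in replicate order from culture 1 to 4 and from kidney 1 to 3. Pearson's r of log2 CPM was 0.967 to 0.992 between cultures and 0.667 to 0.728 between cultures and kidneys. Cultures 1 and 2 were the most alike, at 0.992, and the other pairs of cultures were at 0.967 to 0.977. Whether cultures 1 and 2 share a donor is not stated. The cultures fell into pairs on sex-linked transcripts. The Y-linked gene Ddx3y was at 68.7, 61.7, 0 and 0 CPM in the cultures and 49.2, 47.9 and 70.8 CPM in the kidneys, whereas the X-inactivation RNA Xist was at 0, 0.0278, 73.2 and 472 CPM in the cultures and 0, 0 and 0 CPM in the kidneys. Cultures 1 and 2 thus carried the pattern of the male kidneys and cultures 3 and 4 did not.

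Lrp2, Umod, Aqp2 and Nphs1 mark proximal tubule, thick ascending limb, principal cell and podocyte. Megalin (Lrp2, ENSMUSG00000027070.14, chr2:69424340-69586065 in GRCm38), the endocytic receptor of the proximal tubule, was detected at 86.2, 89.2, 53.4 and 438 CPM in the cultures and 1787, 2972 and 1330 CPM in the kidneys. It stayed well above the detection limit in each culture, with culture 4 highest, but was down-regulated 12.2-fold (log2 fold change -3.61 ± 0.67 SE, adjusted p = 0.000662, and -4.72 without culture 4). A last value in such parentheses is the log2 fold change without the named library, where leaving it out moved the fold by more than 1.5 times. Uromodulin (Umod, ENSMUSG00000030963.6, chr7:119462711-119479282) was at 0.767, 0.919, 1.76 and 3.87 CPM in the cultures and 3121, 4780 and 3224 CPM in the kidneys (log2 fold change -10.99 ± 0.68 SE, adjusted p = 2.26e-07, and -11.65 without culture 4). The vasopressin-regulated water channel Aqp2 (ENSMUSG00000023013.5, chr15:99579055-99584547) was at 0.0265, 0.0278, 0.064 and 0.779 CPM in the cultures and 759.7, 299 and 703 CPM in the kidneys (log2 fold change -11.36 ± 0.92 SE, adjusted p = 1.49e-06, and -13.77 without culture 4). Nephrin (Nphs1, ENSMUSG00000006649.17, chr7:30458315-30487223), a slit diaphragm protein, was at 0.0529, 0, 0 and 0.27 CPM in the cultures and 13.4, 34.4 and 9.37 CPM in the kidneys (log2 fold change -7.84 ± 0.81 SE, adjusted p = 9.35e-06, and -9.71 without culture 4 and -7.09 without kidney 2). None of these 4 markers overlapped between the groups, and in relative terms Lrp2 was the best retained.

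**Figure D1:**
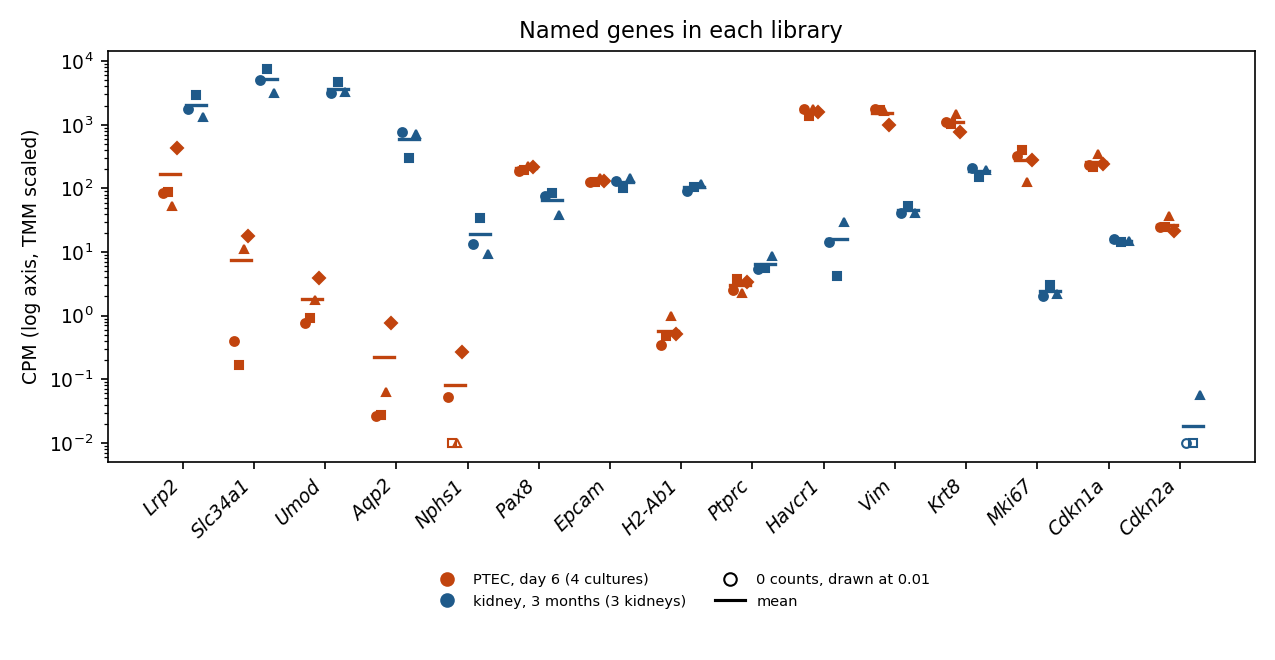
Level of 15 genes in each library, as CPM on a log axis, for 4 PTEC cultures (red) and 3 kidneys (blue); each shape is a replicate, a bar is the group mean and open symbols are 0 counts drawn at 0.01. Lrp2 is lower and Umod, Aqp2 and Nphs1 are far lower in PTEC, Epcam overlaps, and Havcr1, Vim and Mki67 are higher in PTEC.

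Of 16190 genes tested, 5286 were down-regulated in PTEC (32.6%) and 5339 were up-regulated (33%), at an adjusted p under 0.05 and a log2 fold change beyond 0.5. The median log2 fold change of all tested genes was 0.05. With library totals alone as the scale, 3889 genes were lower and 7617 higher, and that median was 0.60. Scaling by RLE or the upper quartile gave 5460 and 5373 lower and 5087 and 5162 higher genes. Tested genes were also sorted by level, with 1 CPM as the boundary between absent and present. On that basis 1539 genes were lost (called lower, present in kidneys and absent in PTEC), 3310 reduced, 4542 kept (present in both and not called), 4048 raised and 770 gained. The other 1981 were too low for these classes. Shares of called members in the gene lists below are to be read against the shares of 32.6% and 33%. The share of all tested genes whose groups do not overlap is not given here. Statements on overlap of named genes therefore only describe their printed values. In bulk RNA, fewer cells of a type and less RNA per cell cannot be told apart.

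**Figure D2:**
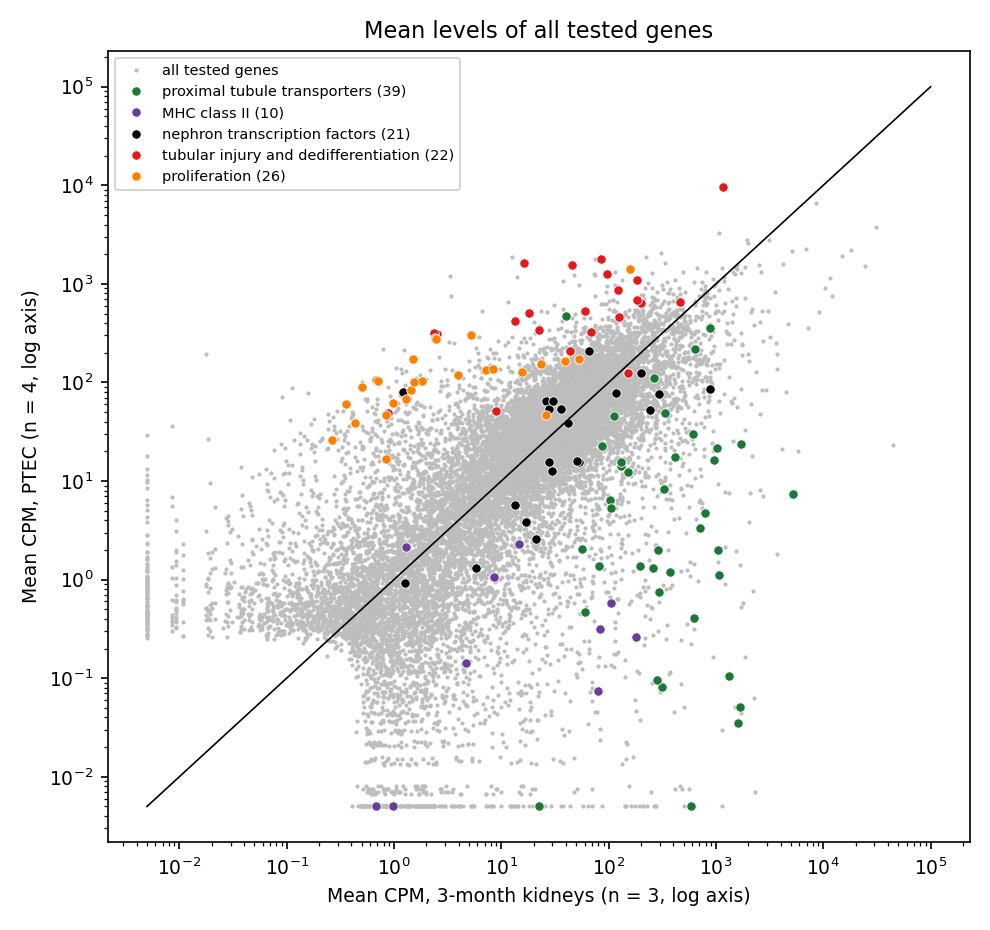
Mean CPM of each of 16190 tested genes in 3-month kidneys (n = 3) and in PTEC (n = 4), both axes logarithmic and levels under 0.005 drawn at 0.005; the line marks equal levels and 5 gene lists are coloured. Most proximal tubule transporters and MHC class II genes lie below the line, proliferation and most injury genes above it, and nephron transcription factors lie around it.

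Receptors and brush border proteins of the proximal tubule were lower in PTEC, though most stayed detectable. Of 22 members, all tested, 20 were down-regulated, 1 was up-regulated and 1 was not called, and the list median (log2 fold change) was -4.44. Cubilin (Cubn), which works with megalin, was at 6.99, 9.58, 5.92 and 34.3 CPM in the cultures and 415, 739 and 297 CPM in the kidneys (log2 fold change -5.09 ± 0.64 SE, adjusted p = 3.72e-05, and -6.0 without culture 4). Its anchoring partner amnionless (Amn) was less reduced, at 30.3, 21.5, 85.1 and 51.4 CPM in the cultures and 262, 245 and 326 CPM in the kidneys (log2 fold change -2.56 ± 0.41 SE, adjusted p = 0.000217). The brush border protease meprin 1 beta (Mep1b) fell furthest. It was at 0, 0, 0.032 and 0 CPM in the cultures and 398, 456 and 520.3 CPM in the kidneys, a ratio of 63377 with a 95% counting interval of 11375 to 2503256. The aspartic protease napsin A (Napsa) was at 0.847, 1.03, 8.15 and 17.6 CPM in the cultures and 4747, 4765 and 5547 CPM in the kidneys (log2 fold change -9.51 ± 1.08 SE, adjusted p = 1.85e-05, and -10.55 without culture 4), and cultures 3 and 4 lay above cultures 1 and 2. An adaptor and a scaffold of the apical membrane were closer to tissue levels. The endocytic adaptor Dab2 was at 165, 152, 141 and 196 CPM in the cultures and 289, 478 and 218 CPM in the kidneys (log2 fold change -1.01 ± 0.28 SE, adjusted p = 0.00857). The scaffold Nherf1 (Slc9a3r1) was at 203, 202, 269 and 203 CPM in the cultures and 396, 557 and 271 CPM in the kidneys (log2 fold change -0.9 ± 0.27 SE, adjusted p = 0.0135). The call of Slc9a3r1 was lost without kidney 2 (adjusted p = 0.0599), and the calls of Dab2 and Slc9a3r1 were lost with library totals as the scale (adjusted p = 0.171 and 0.264). Neprilysin (Mme), a brush border peptidase, was not called, with 178, 159, 101 and 237 CPM in the cultures and 168, 303 and 168 CPM in the kidneys and overlapping groups (log2 fold change -0.34 ± 0.32 SE, adjusted p = 0.369). The chloride-proton exchanger of endosomes, Clcn5, was the member that rose, at 297, 292, 129.5 and 289 CPM in the cultures and 83.5, 139.8 and 65.8 CPM in the kidneys (log2 fold change 1.39 ± 0.36 SE, adjusted p = 0.00527). Its groups overlapped, since culture 3 lay below kidney 2.

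Solute carriers of the proximal tubule were strongly reduced. Of 39 transporters, 37 were down-regulated, and the list median (log2 fold change) was -6.17, or -7.25 without culture 4. Of the down-regulated transporters, 10 were under 1 CPM in PTEC. The main phosphate cotransporter Slc34a1 was at 0.397, 0.167, 10.97 and 18.2 CPM in the cultures and 5097, 7413 and 3103 CPM in the kidneys (log2 fold change -9.46 ± 1.42 SE, adjusted p = 0.000138, and -10.4 without culture 4). All cultures were far below the kidneys, and cultures 3 and 4 were above cultures 1 and 2. Its relative Slc34a3 had 0 counts in all 4 cultures and 20.3, 31.3 and 16.5 CPM in the kidneys, at least 1047-fold lower. Glucose carriers were reduced to different extents. Sglt2 (Slc5a2), the high-capacity sodium-glucose cotransporter of the early segment, was at 0.423, 0.167, 1.92 and 2.79 CPM in the cultures and 239, 343 and 191 CPM in the kidneys (log2 fold change -7.62 ± 0.76 SE, adjusted p = 7.28e-06, and -8.28 without culture 4). Sglt1 (Slc5a1), its high-affinity relative of the late segment, was at 3.78, 2.84, 5.85 and 13.2 CPM in the cultures and 97.02, 118 and 95.9 CPM in the kidneys (log2 fold change -4.02 ± 0.46 SE, adjusted p = 2.06e-05, and -4.63 without culture 4). Basolateral Glut2 (Slc2a2) was at 3.62, 3.34, 15.3 and 34.8 CPM in the cultures and 128, 159 and 101 CPM in the kidneys (log2 fold change -3.18 ± 0.69 SE, adjusted p = 0.00182, and -4.12 without culture 4).

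The organic anion transporters Oat1 (Slc22a6) and Oat3 (Slc22a8) take up drugs and metabolites from blood. Oat1 was at 0.0265, 0, 0.128 and 0.27 CPM in the cultures and 1365, 1616 and 982 CPM in the kidneys (log2 fold change -13.61 ± 0.7 SE, adjusted p = 7.69e-08, and -14.63 without culture 4) and Oat3 at 0.0529, 0.0278, 0.032 and 0.21 CPM in the cultures and 265, 553 and 132 CPM in the kidneys (log2 fold change -11.89 ± 0.71 SE, adjusted p = 1.93e-07, and -12.88 without culture 4 and -11.22 without kidney 2). The urate exchanger Urat1 (Slc22a12) was at 0.0265, 0.0557, 0.064 and 0.0599 CPM in the cultures and 1687, 1983 and 1410 CPM in the kidneys (log2 fold change -14.93 ± 0.43 SE, adjusted p = 6.08e-09), and the organic anion carrier Slco1a1 had 0 counts in every culture against 624, 509.9 and 629.7 CPM in the kidneys, at least 27115-fold lower. No library of one group reached the level of the other for these 4 genes. Amino acid carriers ranged from loss to retention. The cystine carrier of the late segment, Slc7a13, was at 0.0529, 0.0557, 0.032 and 0 CPM in the cultures and 1641, 1448 and 1714 CPM in the kidneys (log2 fold change -15.3 ± 0.49 SE, adjusted p = 6.08e-09). The subunit rBAT (Slc3a1) was at 2.8, 2.56, 24.7 and 56.2 CPM in the cultures and 893, 1162 and 994 CPM in the kidneys (log2 fold change -5.56 ± 0.96 SE, adjusted p = 0.000388, and -6.66 without culture 4). The neutral amino acid carrier Slc6a18 was the only transporter not called, at 142, 98.7, 395 and 784 CPM in the cultures and 787, 915 and 960.4 CPM in the kidneys (log2 fold change -1.32 ± 0.57 SE, adjusted p = 0.0614). Its groups did not overlap, but culture 4 came close to kidney 1 and the cultures spread widely. Without culture 4 it was called, with a log2 fold change of -2.06 and an adjusted p of 0.00539. The sodium-bicarbonate cotransporter Slc4a4 was at 103, 107, 125 and 529.8 CPM in the cultures and 528, 859 and 547 CPM in the kidneys (log2 fold change -1.58 ± 0.55 SE, adjusted p = 0.0246, and -2.52 without culture 4), and culture 4 alone lay in the range of the kidneys. The call of Slc4a4 was lost without culture 1, 2 or 3 or kidney 2, with adjusted p-values of 0.0513 to 0.0946, and with library totals as the scale (adjusted p = 0.135).

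Abcc2 (Mrp2), an apical pump for conjugates, was at 116, 74.9, 91.3 and 161 CPM in the cultures and 220.4, 377 and 195 CPM in the kidneys and fell 2.38-fold (log2 fold change -1.25 ± 0.32 SE, adjusted p = 0.00473), a call that was lost with library totals as the scale (adjusted p = 0.0738). Abcc4 (Mrp4), a pump for organic anions and cyclic nucleotides, was at 545, 482, 316 and 544 CPM in the cultures and 48.9, 39.3 and 31.1 CPM in the kidneys and rose 11.9-fold (log2 fold change 3.57 ± 0.31 SE, adjusted p = 2.57e-06). It was the only one of the 39 transporters that was up-regulated, in 4 of 4 cultures. Water channel Aqp1, which proximal tubule shares with descending thin limb and endothelium, was at 5.95, 21.5, 26.2 and 40.7 CPM in the cultures and 1690, 1811 and 1591 CPM in the kidneys (log2 fold change -6.17 ± 0.56 SE, adjusted p = 3.42e-06).

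**Figure D3:**
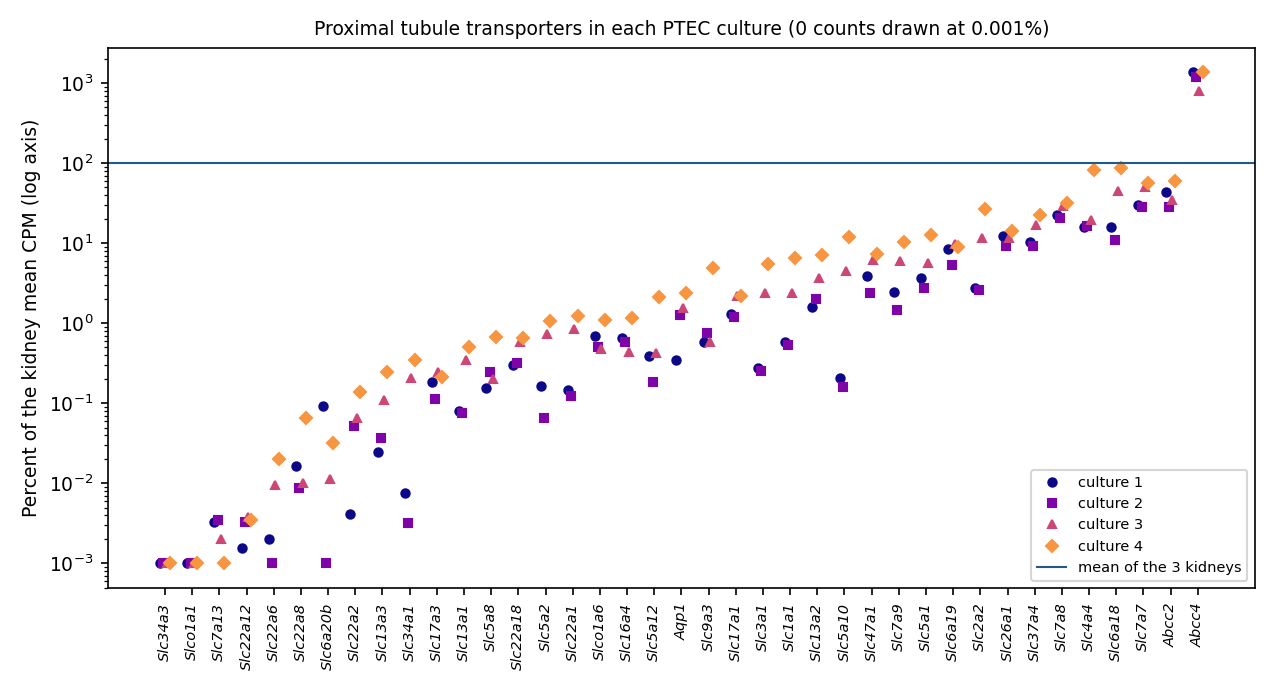
Level of 39 proximal tubule transporters in each PTEC culture as percent of the mean of the 3 kidneys, on a log axis, ordered by the group mean; 0 counts are drawn at 0.001% and the line marks 100%. Abcc4 alone lies above the line in all cultures, and culture 4 is the highest of the cultures for 30 of the 37 transporters whose levels differ among cultures.

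The promoter of Slc3a1 is shown because it holds the letters CAAAGTCCA, a motif of HNF4, which drives many proximal tubule genes. The sequence is 250 bases upstream of the RefSeq start in GRCm38.p6, 5′ to 3′ on the strand of the gene, and capitals mark the letters.
Slc3a1 (chr17:85028097-85028346, plus strand): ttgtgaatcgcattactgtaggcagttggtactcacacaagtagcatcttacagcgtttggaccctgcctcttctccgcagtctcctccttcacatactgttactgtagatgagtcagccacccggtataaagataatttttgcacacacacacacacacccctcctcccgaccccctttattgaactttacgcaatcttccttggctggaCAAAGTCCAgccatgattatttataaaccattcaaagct
The letters lie 39 to 31 bases before the start. Among RefSeq windows from 250 bases before to 50 after the start, CAAAGTCCA on either strand was in 0.477% of all 27025 genes and in 0.408% of the 11758 tested genes with a window. It was in 0.876% of lost, 0.421% of reduced, 0.315% of kept, 0.283% of raised and 0.394% of gained genes, and in 4 of 82 proximal tubule genes (4.88%). These are matches of letters, with no test.

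Metabolic enzymes of the proximal tubule had the lowest median of the 3 proximal lists. Of 40 genes, 37 were down-regulated, 1 was up-regulated and 2 were not called, and the list median (log2 fold change) was -8.21, or -7.86 when genes with 0 to 3 counts in PTEC were set to their bound or ratio. Phosphoenolpyruvate carboxykinase (Pck1) was at 0.291, 0.167, 1.22 and 3.98 CPM in the cultures and 1638, 2343 and 1099 CPM in the kidneys (log2 fold change -10.23 ± 1.01 SE, adjusted p = 6.78e-06, and -11.58 without culture 4). The glucose-6-phosphatase subunit G6pc was at 0.0265, 0.0557, 0.288 and 0.719 CPM in the cultures and 288, 304 and 179 CPM in the kidneys (log2 fold change -9.9 ± 0.72 SE, adjusted p = 6.53e-07, and -11.05 without culture 4). Ketohexokinase (Khk), which starts fructose breakdown, was at 7.8, 6.43, 43.3 and 45.5 CPM in the cultures and 1479, 1262 and 1580 CPM in the kidneys (log2 fold change -5.81 ± 0.71 SE, adjusted p = 3.03e-05), with cultures 3 and 4 several times above cultures 1 and 2. The androgen-regulated gene Kap was at 17.1, 7.21, 40.2 and 29.2 CPM in the cultures and 44872, 39138 and 48621 CPM in the kidneys (log2 fold change -10.88 ± 0.69 SE, adjusted p = 2.7e-07). Inositol oxygenase (Miox), which is known from the renal proximal tubule, was at 0.0529, 0.0835, 0.224 and 0.3 CPM in the cultures and 1890, 2023 and 1646 CPM in the kidneys (log2 fold change -13.46 ± 0.54 SE, adjusted p = 1.79e-08). The aldo-keto reductase Akr1c21 had 1 count in all cultures together and 2379, 1816 and 2786 CPM in the kidneys, a ratio of 321956 with a 95% counting interval of 57785 to 12716580. Of the vitamin D enzymes, the activating Cyp27b1 was at 9.6, 9.91, 23.8 and 31.4 CPM in the cultures and 1.62, 2.44 and 2.79 CPM in the kidneys and rose 8.15-fold (log2 fold change 3.03 ± 0.47 SE, adjusted p = 0.000191), which became a log2 fold change of -0.55 with 24-month kidneys as the controls. The inactivating enzyme Cyp24a1 was at 0.979, 1.87, 2.08 and 5.33 CPM in the cultures and 2.04, 5.35 and 2.29 CPM in the kidneys and was not called (log2 fold change -0.34 ± 0.54 SE, adjusted p = 0.602, and -0.97 without culture 4). Kl (klotho), a co-receptor for the phosphate hormone FGF23, was at 3.49, 3.17, 4 and 13.5 CPM in the cultures and 665, 1036 and 501 CPM in the kidneys (log2 fold change -6.92 ± 0.59 SE, adjusted p = 2.3e-06, and -7.68 without culture 4).

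Fatty acid oxidation genes and mitochondrial transcripts were lower. All 25 genes of fatty acid oxidation were down-regulated, and the list median (log2 fold change) was -2.6, against 32.6% of all tested genes. With library totals as the scale 24 of them were. The fatty acid carrier and acyl-CoA synthetase Slc27a2 was at 5.13, 4.43, 24.8 and 46.02 CPM in the cultures and 5697, 6647 and 5179 CPM in the kidneys (log2 fold change -8.18 ± 0.86 SE, adjusted p = 1.06e-05, and -8.99 without culture 4). The peroxisomal enzyme Ehhadh was at 6.93, 7.63, 5.53 and 10.4 CPM in the cultures and 1083, 1356 and 1550 CPM in the kidneys (log2 fold change -7.45 ± 0.34 SE, adjusted p = 3.82e-08). The medium-chain dehydrogenase Acadm was at 76.4, 73.96, 94.9 and 101 CPM in the cultures and 1515, 1670 and 1991 CPM in the kidneys (log2 fold change -4.32 ± 0.27 SE, adjusted p = 2.38e-07). The rate-limiting carnitine transferase Cpt1a was at 89.1, 88.3, 73.1 and 138 CPM in the cultures and 311, 582 and 222 CPM in the kidneys and was less reduced (log2 fold change -1.94 ± 0.34 SE, adjusted p = 0.000473). Hadha, a subunit of the trifunctional protein, had the smallest reduction, at 131, 129, 178 and 148 CPM in the cultures and 239, 338 and 218 CPM in the kidneys (log2 fold change -0.86 ± 0.24 SE, adjusted p = 0.0082), and lost its call with library totals as the scale. The identifier versions of Ehhadh and Hadha differ between the gene sets used for both groups. Mitochondrially encoded transcripts took 0.695%, 1.43%, 0.979% and 2.04% of counts in the cultures and 9.08%, 9.33% and 9.93% in the kidneys, 1.29% ± 0.587 (SD, n = 4) against 9.45% ± 0.436 (SD, n = 3). The exact two-sided permutation test gave p = 0.0571, the smallest value that 35 splits allow. All 11 tested mitochondrial genes were down-regulated, and the list median (log2 fold change) was -3.33. Cytochrome b (mt-Cytb) was at 772, 1735, 1138 and 2430 CPM in the cultures and 23604, 25968 and 24305 CPM in the kidneys (log2 fold change -4.02 ± 0.42 SE, adjusted p = 9.21e-06). Culture 4 was the highest culture for each of these 11 genes.

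Transcription factors of the nephron stayed detectable, and their median was closer to 0 than those of the nephron segments. Of 21 tested factors (22 listed), 12 were down-regulated, none of which was lost, 5 were up-regulated and 4 were not called, and the list median (log2 fold change) was -0.84, which became -0.29 with library totals as the scale. Hnf4a, the factor tied to proximal tubule maturation, was at 79.7, 68.97, 86.96 and 108 CPM in the cultures and 847, 1259 and 509 CPM in the kidneys and was the most reduced (log2 fold change -3.34 ± 0.33 SE, adjusted p = 6.48e-06). Ppara, a regulator of fatty acid oxidation, was at 1.24, 0.863, 2.11 and 6.23 CPM in the cultures and 18.3, 32.8 and 12.2 CPM in the kidneys (log2 fold change -3.02 ± 0.6 SE, adjusted p = 0.00106, and -3.9 without culture 4). Its coactivator Ppargc1a was at 11.2, 11, 9.34 and 30.98 CPM in the cultures and 51.4, 64.6 and 44.5 CPM in the kidneys (log2 fold change -1.78 ± 0.39 SE, adjusted p = 0.00205). The renal lineage factors Pax8 and Pax2 were up-regulated. Pax8 was at 187, 196, 226 and 221 CPM in the cultures and 74.8, 84.2 and 38.6 CPM in the kidneys and rose 3.15-fold (log2 fold change 1.65 ± 0.29 SE, adjusted p = 0.000398), and Pax2 was at 59.4, 71.5, 53.7 and 75.8 CPM in the cultures and 34.5, 27.3 and 17.1 CPM in the kidneys (log2 fold change 1.31 ± 0.27 SE, adjusted p = 0.00137). Both stood above all kidneys in each culture. Foxm1, a factor of dividing cells that is counted among the 5 rises of this list, was at 101, 93.9, 68.6 and 53.7 CPM in the cultures and 1.17, 1.7 and 0.753 CPM in the kidneys (log2 fold change 6.03 ± 0.4 SE, adjusted p = 3.4e-07).

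Hox genes, which mark position along the body axis, had no common direction. Of 22 tested Hox genes (24 listed), 6 were down-regulated, 5 up-regulated and 11 not called, and the list median (log2 fold change) was -0.01, which became 0.54 with library totals as the scale. With that scale 2 fell and 9 rose. The 5 rises were 3 without culture 2, culture 3, kidney 1 or kidney 3. Hoxb9 had the largest rise, at 96.1, 105, 95.3 and 87.9 CPM in the cultures and 32.5, 27.5 and 28.3 CPM in the kidneys (log2 fold change 1.71 ± 0.2 SE, adjusted p = 2.67e-05). Hoxd8 had the largest fall, at 30.2, 32.3, 33.6 and 33.9 CPM in the cultures and 111, 111 and 117 CPM in the kidneys (log2 fold change -1.8 ± 0.19 SE, adjusted p = 9.8e-06). Hoxa9 was at 34.2, 31.3, 32.4 and 33.9 CPM in the cultures and 42.98, 45.9 and 37.8 CPM in the kidneys and was not called (log2 fold change -0.36 ± 0.19 SE, adjusted p = 0.12). The cultures lay close together for each of these 3 genes.

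Segments beyond the proximal tubule were reduced as well. In the thick ascending limb, 12 of 15 genes were down-regulated and 3 were not called, and the list median (log2 fold change) was -6.54. The cotransporter Nkcc2 (Slc12a1), target of loop diuretics, was at 3.97, 3.34, 4.25 and 14.3 CPM in the cultures and 511, 1049 and 591 CPM in the kidneys (log2 fold change -6.79 ± 0.59 SE, adjusted p = 2.48e-06, and -7.53 without culture 4). The potassium channel Romk (Kcnj1) was at 0.873, 0.78, 1.18 and 6.08 CPM in the cultures and 243, 278 and 284 CPM in the kidneys (log2 fold change -6.91 ± 0.71 SE, adjusted p = 8.59e-06, and -8.14 without culture 4). Epidermal growth factor (Egf) was at 1.98, 1.98, 1.28 and 3.35 CPM in the cultures and 963, 1924 and 760 CPM in the kidneys (log2 fold change -9.14 ± 0.51 SE, adjusted p = 1.23e-07). Among those not called, the paracellular claudins Cldn16 and Cldn19 were at 8.44 to 17.4 and 16.8 to 40.9 CPM in the cultures and at 12.2 to 21.6 and 42.5 to 48.6 CPM in the kidneys. Without culture 4, Cldn19 was called lower (adjusted p = 0.0142), as it was with RLE scaling (adjusted p = 0.0486).

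In the distal convoluted and connecting tubule, 12 of 13 genes were down-regulated, and the list median (log2 fold change) was -4.41, or -5.73 without culture 4. The thiazide-sensitive cotransporter Slc12a3 was at 0.397, 0.724, 0.288 and 1.92 CPM in the cultures and 377, 484 and 266 CPM in the kidneys (log2 fold change -8.82 ± 0.62 SE, adjusted p = 5.34e-07, and -9.61 without culture 4). The calcium buffer Calb1 was at 0.423, 0.78, 0.16 and 2.16 CPM in the cultures and 372, 423 and 374 CPM in the kidneys (log2 fold change -8.79 ± 0.68 SE, adjusted p = 1.1e-06, and -9.7 without culture 4). Parvalbumin (Pvalb) had 0 counts in the cultures and 22.8, 18.9 and 30.96 CPM in the kidneys, at least 1117-fold lower. The magnesium channel Trpm6 was not called, at 29.4, 36.7, 12.2 and 30.6 CPM in the cultures and 17.2, 22.6 and 11.7 CPM in the kidneys (log2 fold change 0.66 ± 0.36 SE, adjusted p = 0.126). Without culture 3 it was called higher (adjusted p = 0.0163), as it was with library totals as the scale. The kinase Sgk1, which many tissues express, was down-regulated with overlapping groups, at 62.6, 64.2, 55.4 and 68.5 CPM in the cultures and 108, 56.8 and 168 CPM in the kidneys (log2 fold change -0.82 ± 0.31 SE, adjusted p = 0.0356). That call was lost without any one of the cultures, kidney 1 or kidney 3, with adjusted p-values of 0.0618 to 0.225, and with library totals as the scale (adjusted p = 0.448). Its log2 fold change was 0.52 with 12-month kidneys.

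Principal cell genes ranged from loss to retention. Of 15 genes, 11 were down-regulated and 4 were not called, and the list median (log2 fold change) was -3.1, the closest to 0 of the 4 distal lists, or -4.13 without culture 4. Basolateral water channel Aqp3 was at 0.556, 0.473, 0.608 and 0.629 CPM in the cultures and 159, 169 and 135 CPM in the kidneys (log2 fold change -8.08 ± 0.26 SE, adjusted p = 6.08e-09). The glucocorticoid-inactivating enzyme Hsd11b2 was at 3.84, 4.96, 3.71 and 4.49 CPM in the cultures and 203, 253 and 147 CPM in the kidneys (log2 fold change -5.56 ± 0.27 SE, adjusted p = 5.44e-08). Subunits of the epithelial sodium channel differed from each other. The alpha subunit Scnn1a was at 61.2, 70.6, 88.05 and 191 CPM in the cultures and 112, 165 and 68.3 CPM in the kidneys and was not called (log2 fold change -0.16 ± 0.41 SE, adjusted p = 0.739). The beta subunit Scnn1b was at 1.61, 2.2, 3.58 and 12.7 CPM in the cultures and 45.97, 55.7 and 32.2 CPM in the kidneys (log2 fold change -3.15 ± 0.6 SE, adjusted p = 0.000797, and -4.17 without culture 4). The gamma subunit Scnn1g was at 2.09, 2.34, 3.1 and 13.2 CPM in the cultures and 48.04, 47.5 and 37.5 CPM in the kidneys (log2 fold change -3.1 ± 0.57 SE, adjusted p = 0.000644, and -4.13 without culture 4). For both reduced subunits culture 4 was several times above the other cultures. The collecting duct factor Tfcp2l1 was at 199.9, 193, 128 and 298 CPM in the cultures and 146, 279.9 and 90.7 CPM in the kidneys (log2 fold change 0.25 ± 0.38 SE, adjusted p = 0.581). The matrix protein nephronectin (Npnt) was at 132, 139, 164 and 355 CPM in the cultures and 236, 269 and 161 CPM in the kidneys (log2 fold change -0.17 ± 0.36 SE, adjusted p = 0.692), and both overlapped between the groups.

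Intercalated cells, which secrete acid or base, had the lowest median of the nephron lists. Of 16 genes, 15 were down-regulated and 12 were lost, and the list median (log2 fold change) was -9.32. In PTEC, 4 of the 16 had 0 to 3 counts. These passed the filter on low counts through the kidneys alone, so their direction was fixed by the filter. Their master factor Foxi1 was at 0, 0.0278, 0.032 and 0.0899 CPM in the cultures and 21.5, 25.7 and 17.2 CPM in the kidneys (log2 fold change -9.07 ± 0.49 SE, adjusted p = 9.65e-08, and -9.88 without culture 4). Pendrin (Slc26a4), the anion exchanger of base-secreting cells, was at 0.0529, 0.0835, 0.0959 and 0.0599 CPM in the cultures and 70.6, 76.4 and 53.4 CPM in the kidneys (log2 fold change -9.78 ± 0.33 SE, adjusted p = 6.6e-09). Band 3 (Slc4a1), found in acid-secreting cells and red blood cells, was at 0, 0, 0.032 and 0.03 CPM in the cultures and 47.8, 61.1 and 34.2 CPM in the kidneys, a ratio of 3299 with a 95% counting interval of 913 to 27240. The proton pump subunit Atp6v0a4, which proximal tubule also expresses, was at 15.2, 10.6, 27.7 and 55.6 CPM in the cultures and 282, 381 and 221 CPM in the kidneys and less reduced (log2 fold change -3.43 ± 0.5 SE, adjusted p = 0.000112, and -4.03 without culture 4). The receptor Kit was not called, at 4.74, 9.52, 3.04 and 12.2 CPM in the cultures and 8.85, 13.5 and 8.34 CPM in the kidneys (log2 fold change -0.47 ± 0.43 SE, adjusted p = 0.353).

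Podocyte genes did not move as one. Of 14 genes, 10 were down-regulated, 1 was up-regulated and 3 were not called, and the list median (log2 fold change) was -1.91. The podocyte factor Tcf21 was at 0.0265, 0.0557, 0 and 0.0599 CPM in the cultures and 14.2, 12.4 and 17.8 CPM in the kidneys (log2 fold change -8.55 ± 0.47 SE, adjusted p = 1.08e-07). Synaptopodin (Synpo), an actin-binding protein, was not called, at 53.9, 64.5, 30.2 and 49.9 CPM in the cultures and 45.6, 77.4 and 42.3 CPM in the kidneys (log2 fold change -0.15 ± 0.3 SE, adjusted p = 0.673). Wt1, a podocyte factor that is also active in nephron progenitors, was at 56.6, 71.2, 19.6 and 30.4 CPM in the cultures and 4.76, 9.82 and 4.29 CPM in the kidneys and rose 7.05-fold (log2 fold change 2.82 ± 0.48 SE, adjusted p = 0.000356). It exceeded all kidneys in 4 of 4 cultures, with cultures 1 and 2 above cultures 3 and 4, while Nphs1 was under 0.5 CPM in each culture.

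Endothelial transcripts were reduced moderately. Of 22 genes, 17 were down-regulated, 5 were not called and 1 was lost, and the list median (log2 fold change) was -1.67. With library totals as the scale 11 were down-regulated. Summed levels of the list were 125 to 379 CPM in the cultures and 602 to 810.5 CPM in the kidneys. The adhesion molecule Pecam1 was at 11.6, 33.8, 6.88 and 20.8 CPM in the cultures and 41.8, 56.7 and 41.7 CPM in the kidneys (log2 fold change -1.36 ± 0.43 SE, adjusted p = 0.0167), a call that was lost without kidney 2 (adjusted p = 0.0603) and with library totals as the scale (adjusted p = 0.126). It marks endothelium and some leukocytes. The fenestral diaphragm protein Plvap was at 2.83, 11.6, 2.72 and 8.78 CPM in the cultures and 112, 142 and 108 CPM in the kidneys (log2 fold change -4.22 ± 0.49 SE, adjusted p = 2.24e-05). The junction cadherin Cdh5 was at 19.3, 55.8, 7.74 and 31.6 CPM in the cultures and 20.2, 30.1 and 15.5 CPM in the kidneys and was not called (log2 fold change 0.38 ± 0.52 SE, adjusted p = 0.53). The receptor Kdr was not called either, at 38.5, 33.9, 20.9 and 27.6 CPM in the cultures and 23.2, 50.7 and 25.9 CPM in the kidneys (log2 fold change -0.14 ± 0.31 SE, adjusted p = 0.711). Culture 2 was the highest of the cultures for 19 of the 22 genes and culture 3 the lowest for 18, whereas over all tested genes that varied among cultures the same held for 20% and 34%.

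Markers of fibroblasts, pericytes and smooth muscle diverged. Of 21 tested genes (22 listed), 13 were down-regulated, 3 up-regulated and 5 not called, and the list median (log2 fold change) was -2.41. Renin (Ren1) was at 0.212, 0.306, 0.064 and 0.03 CPM in the cultures and 127, 152 and 150 CPM in the kidneys (log2 fold change -9.79 ± 0.48 SE, adjusted p = 5.29e-08). Decorin (Dcn), a proteoglycan of fibroblasts, was at 0, 0.111, 0.064 and 0.12 CPM in the cultures and 26.3, 19.2 and 47.5 CPM in the kidneys (log2 fold change -8.67 ± 0.56 SE, adjusted p = 3.15e-07). Pdgfrb, the receptor of pericytes, was at 2.09, 4.93, 2.14 and 3.71 CPM in the cultures and 18.7, 32.5 and 16.2 CPM in the kidneys (log2 fold change -2.8 ± 0.37 SE, adjusted p = 5.45e-05). The summed level of the list was 278 to 406 CPM in the cultures and 554 to 686 CPM in the kidneys. Smooth muscle actin (Acta2) was not called, at 55.1, 80.2, 40.7 and 27.3 CPM in the cultures and 41.01, 32.7 and 37.6 CPM in the kidneys (log2 fold change 0.45 ± 0.33 SE, adjusted p = 0.239), but was called higher with library totals as the scale. Transgelin (Tagln), an actin-binding protein that responds to cell shape, was up-regulated with overlapping groups, at 163, 146, 85.1 and 51.8 CPM in the cultures and 44.2, 26.1 and 70.5 CPM in the kidneys (log2 fold change 1.25 ± 0.43 SE, adjusted p = 0.0232). Its call was lost without culture 1, kidney 1 or kidney 2, with adjusted p-values of 0.0615 to 0.0732. Collagen Col1a1 was not called, at 4.68, 24.9, 36.9 and 39.6 CPM in the cultures and 18.7, 25.5 and 14.5 CPM in the kidneys, with culture 1 several times lower than the other cultures (log2 fold change 0.44 ± 0.54 SE, adjusted p = 0.49). Without culture 1 it was called higher (adjusted p = 0.0379). The 3 rises of the list were 1 without kidney 1 and 6 with library totals as the scale.

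Most red blood cell and urothelial genes were lower in PTEC. The haemoglobin genes Hba-a1 and Hbb-bs had 0 counts in each culture and were at 124, 124 and 183 and at 439, 276 and 799 CPM in the kidneys, at least 6635-fold and at least 23272-fold lower. Each has a near-identical copy in its own globin cluster with which it may share reads. Of the 7 tested red blood cell genes, 5 were down-regulated, 1 was up-regulated (log2 fold change 1.27) and 1 was not called. The 5 down-regulated genes had few or no counts in PTEC. They passed the filter on low counts through the kidneys alone, so their direction was fixed by the filter. The median over the 7 genes was -12.79, or -10.98 at the bounds and -11.85 in the fit without kidney 2. Its direction was thus fixed by the filter too. The uroplakin Upk3a of urothelium also had 0 counts in the cultures, with 36.6, 6.89 and 42.9 CPM in the kidneys, at least 1328-fold lower. Kidney 2 was lowest for it and for the list. The summed level of urothelial genes was 31.2 to 42.4 CPM in the cultures and 215.5, 40.5 and 174 CPM in the kidneys, so that kidney 2 lay in the range of the cultures. Of 10 urothelial genes, 7 were down-regulated and 2 were not called, and the list median (log2 fold change) was -4.96, which became 2.02 with 12-month kidneys as the controls. The exception was keratin Krt17, at 11.9, 14.7, 7 and 3.65 CPM in the cultures and 0.227, 0.0514 and 0.0279 CPM in the kidneys (log2 fold change 6.54 ± 0.73 SE, adjusted p = 1.58e-05, and 7.73 without kidney 1).

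Leukocyte transcripts were lower but not absent. Of 12 pan-leukocyte genes, 10 were down-regulated, and the list median (log2 fold change) was -1.47. With library totals as the scale 6 were down-regulated and the median was -0.92. The summed level was 40.3 to 65.8 CPM in the cultures and 114 to 134 CPM in the kidneys. CD45 (Ptprc), carried by all leukocytes, was at 2.54, 3.76, 2.3 and 3.38 CPM in the cultures and 5.45, 5.53 and 8.76 CPM in the kidneys (log2 fold change -1.13 ± 0.3 SE, adjusted p = 0.00664), a call that was lost under the same scale. The macrophage marker F4/80 (Adgre1) was at 1.43, 2.42, 0.736 and 1.35 CPM in the cultures and 4.15, 3.78 and 5.94 CPM in the kidneys (log2 fold change -1.63 ± 0.39 SE, adjusted p = 0.00341). Of 16 macrophage genes, 9 were down-regulated, 2 up-regulated and 5 not called, and the list median (log2 fold change) was -1.21, which became -0.65 with library totals as the scale. The fractalkine receptor Cx3cr1 was at 0.318, 0.473, 0.288 and 0.419 CPM in the cultures and 3.6, 4.84 and 5.3 CPM in the kidneys (log2 fold change -3.6 ± 0.34 SE, adjusted p = 4.79e-06). The complement subunit C1qa was at 3.76, 9.13, 5.31 and 3.35 CPM in the cultures and 13.97, 13.5 and 24.6 CPM in the kidneys (log2 fold change -1.69 ± 0.37 SE, adjusted p = 0.00201). Lysosomal Cd68 was at 8.81, 13.4, 11.2 and 14.3 CPM in the cultures and 2.82, 3.14 and 3.12 CPM in the kidneys (log2 fold change 1.97 ± 0.27 SE, adjusted p = 7.06e-05). The endotoxin co-receptor Cd14 was at 24.1, 31.4, 31.1 and 33.4 CPM in the cultures and 8.49, 5.35 and 10.8 CPM in the kidneys (log2 fold change 1.87 ± 0.28 SE, adjusted p = 0.000128), and both were above the kidneys in 4 of 4 cultures. The tetraspanin Cd81, present on many cell types, was at 313, 306, 371 and 392 CPM in the cultures and 417, 420.5 and 391 CPM in the kidneys and was not called (log2 fold change -0.24 ± 0.22 SE, adjusted p = 0.344). Culture 2 was the highest culture for 11 of 12 pan-leukocyte genes and for 12 of 16 macrophage genes.

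Lymphocytes and dendritic cells left fewer counts. Of 17 T and NK cell genes, 7 passed the filter on low counts, and 6 of these were down-regulated. Their median was -5.8, or -4.48 at the bounds, and -7.08 and -7.07 in the fits without culture 2 and without kidney 1. Cd8a had 0 counts in the cultures and 1.26, 1.67 and 1.12 CPM in the kidneys, at least 62.3-fold lower. The kinase Lck was the exception, at 1.67, 2.25, 3.07 and 2.01 CPM in the cultures and 1.26, 0.9 and 1.53 CPM in the kidneys (log2 fold change 0.87 ± 0.35 SE, adjusted p = 0.0484), and its call was lost without culture 2, 3 or 4, kidney 1 or kidney 2, with adjusted p-values of 0.0529 to 0.142. The call of Lck was also lost with scaling by RLE or the upper quartile (adjusted p = 0.0656 and 0.0768). Of 11 B and plasma cell genes, 5 were tested and all were down-regulated, with a median of -7.37, or -7.95 at the bounds and -6.61 in the fit without kidney 3. These 5 summed to at most 0.256 CPM in a culture and passed the filter through the kidneys alone, so their direction was fixed by the filter. Without the filter the median of the list was -5.6. Of 8 dendritic cell genes, 6 were tested and 5 were down-regulated, with a median of -5.84, or -4.64 at the bounds. In the T and NK cell list and in the dendritic cell list, 4 tested genes each had 0 to 3 counts in PTEC. Those genes too passed the filter through the kidneys alone. The 18 untested members of these 3 lists were under 1 CPM in every library, and 17 of them were lower in each culture than in each kidney, against 11.6% of all untested genes with a count. The part of leukocytes and other cell types in the results was not tested.

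MHC class II genes, which present antigen to CD4+ T cells, were mostly down-regulated, and the classical chains were nearly absent from PTEC. Of 11 genes, 10 were tested, 9 were down-regulated and 1 was not called, and the list median (log2 fold change) was -7.54, or -5.24 at the bounds. The invariant chain Cd74 was at 0.0794, 0.306, 0.448 and 0.21 CPM in the cultures and 154, 229 and 151 CPM in the kidneys (log2 fold change -9.42 ± 0.45 SE, adjusted p = 4.96e-08). The beta chains H2-Ab1 and H2-Eb1 were at 0.344, 0.473, 0.991 and 0.509 CPM in the cultures and 92.5, 105 and 119 CPM in the kidneys (log2 fold change -7.52 ± 0.36 SE, adjusted p = 5.09e-08) and at 0.265, 0.223, 0.608 and 0.18 CPM in the cultures and 74.6, 79.5 and 94.7 CPM in the kidneys (log2 fold change -8.03 ± 0.39 SE, adjusted p = 5.09e-08). The class II transactivator Ciita was at 0.159, 0.0557, 0.032 and 0.33 CPM in the cultures and 3.96, 5.2 and 4.83 CPM in the kidneys (log2 fold change -4.98 ± 0.54 SE, adjusted p = 1.37e-05, and -5.71 without culture 4). No culture exceeded 1 CPM for these 4 genes, and each kidney did. Whether these reductions differ from those of leukocyte genes was not tested. The chaperone chain H2-DMb2 was not called, at 1.64, 1.64, 3.36 and 1.86 CPM in the cultures and 1.04, 1.34 and 1.51 CPM in the kidneys (log2 fold change 0.71 ± 0.37 SE, adjusted p = 0.112).

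MHC class I genes were mostly not called. Of 9 genes, 2 were down-regulated and 7 were not called, and the list median (log2 fold change) was -0.3, which became 0.26 with library totals as the scale. Leaving out each library in turn gave 1 to 2 down-regulated genes. The light chain B2m was at 175, 253, 275 and 216 CPM in the cultures and 199, 224 and 210.5 CPM in the kidneys (log2 fold change 0.12 ± 0.23 SE, adjusted p = 0.655), and was called higher with library totals as the scale. The heavy chain H2-K1 was at 184, 225, 354 and 277 CPM in the cultures and 251, 272 and 236 CPM in the kidneys (log2 fold change 0.04 ± 0.26 SE, adjusted p = 0.897). The non-classical gene H2-T23 was down-regulated, at 17.6, 17.6, 19 and 16.5 CPM in the cultures and 174, 176 and 209.8 CPM in the kidneys (log2 fold change -3.4 ± 0.2 SE, adjusted p = 1.96e-07). Class I genes are highly similar in sequence, so reads may be split uncertainly between them.

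Interferon response genes were mixed, with 14 of 23 tested genes down-regulated, 4 up-regulated and 5 not called, and a median log2 fold change of -1.1. The 14 falls were 9 without culture 1 and 8 without kidney 3, and with library totals as the scale 8 fell and 7 rose. The immunoproteasome subunit Psmb9 was at 0.344, 0.947, 0.704 and 0.749 CPM in the cultures and 7.03, 5.17 and 9.48 CPM in the kidneys (log2 fold change -3.39 ± 0.39 SE, adjusted p = 1.83e-05). Viperin (Rsad2) was at 4.1, 6.93, 5.47 and 9.86 CPM in the cultures and 30.4, 35.5 and 36.95 CPM in the kidneys (log2 fold change -2.38 ± 0.29 SE, adjusted p = 3.25e-05). The interferon-induced genes Ifit3 and Bst2 went the other way, at 59.1, 41.3, 160.5 and 101 CPM in the cultures and 24.5, 21.1 and 27.5 CPM in the kidneys (log2 fold change 1.89 ± 0.42 SE, adjusted p = 0.00198) and at 25.4, 47.4, 61.2 and 37.7 CPM in the cultures and 14.6, 12.7 and 20.1 CPM in the kidneys (log2 fold change 1.44 ± 0.31 SE, adjusted p = 0.00188). Culture 1 was the lowest culture for 19 of 23 genes of this list.

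In the complement list, 12 of 17 tested genes were down-regulated and 3 up-regulated, and the list median (log2 fold change) was -3.18. Factor B (Cfb), a part of the alternative pathway convertase, was at 0.714, 0.835, 1.31 and 2.58 CPM in the cultures and 42.4, 75.7 and 29.7 CPM in the kidneys (log2 fold change -5.18 ± 0.48 SE, adjusted p = 4.25e-06). The central component C3 was at 269, 258, 177 and 569 CPM in the cultures and 15.2, 24.2 and 22.1 CPM in the kidneys and rose 15.5-fold (log2 fold change 3.96 ± 0.43 SE, adjusted p = 1.38e-05). Each culture stood above each kidney for C3 and below each kidney for Cfb.

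Markers of tubular injury and dedifferentiation were up-regulated in PTEC. Of 22 genes, 20 were up-regulated and 2 were not called, and the list median (log2 fold change) was 3.09, against 33% of tested genes that were up-regulated. Kim-1 (Havcr1, ENSMUSG00000040405.13, chr11:46735080-46779578), a phosphatidylserine receptor of injured tubule, was at 1746, 1372, 1787 and 1595 CPM in the cultures and 14.6, 4.14 and 30.1 CPM in the kidneys and rose 99.99-fold (log2 fold change 6.64 ± 0.66 SE, adjusted p = 6.87e-06, and 7.44 without kidney 3). The cultures lay close together, and the kidneys varied more. Vimentin (Vim), an intermediate filament, was at 1796, 1715, 1655 and 985 CPM in the cultures and 41.8, 52.8 and 41.7 CPM in the kidneys (log2 fold change 5.08 ± 0.35 SE, adjusted p = 4.49e-07). Lipocalin 2 (Lcn2) was at 218, 476, 433 and 546 CPM in the cultures and 15.1, 6.51 and 18.96 CPM in the kidneys (log2 fold change 4.95 ± 0.48 SE, adjusted p = 5.71e-06). The hyaluronan receptor Cd44 was at 423, 392, 202 and 249 CPM in the cultures and 2.11, 1.7 and 3.35 CPM in the kidneys and had the largest rise (log2 fold change 7.05 ± 0.44 SE, adjusted p = 2.57e-07). The factor Sox9 of regenerating tubule was at 57.5, 52.4, 44.1 and 43.4 CPM in the cultures and 1.07, 0.797 and 0.753 CPM in the kidneys (log2 fold change 5.82 ± 0.29 SE, adjusted p = 5.65e-08). Secreted osteopontin (Spp1) was at 7460, 9341, 8545 and 12819 CPM in the cultures and 1233, 747 and 1522 CPM in the kidneys (log2 fold change 3.03 ± 0.37 SE, adjusted p = 3.33e-05). Clusterin (Clu) and integrin Itgb6 were not called, at 489.5, 870, 523 and 714 CPM in the cultures and 530, 410.2 and 433 CPM in the kidneys and at 103, 102, 117 and 182 CPM in the cultures and 167, 152 and 139 CPM in the kidneys.

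Keratins of simple epithelium rose together. Krt8 was at 1090, 1043, 1452 and 780.3 CPM in the cultures and 208, 153 and 192 CPM in the kidneys (log2 fold change 2.56 ± 0.3 SE, adjusted p = 2.21e-05). Its partner Krt18 was at 503, 504, 720.1 and 397 CPM in the cultures and 88.7, 27.3 and 64.4 CPM in the kidneys (log2 fold change 3.14 ± 0.41 SE, adjusted p = 5.51e-05). Krt7 was at 622, 589, 893 and 438 CPM in the cultures and 227, 172 and 200.2 CPM in the kidneys (log2 fold change 1.67 ± 0.29 SE, adjusted p = 0.000425). Krt19 was at 209.5, 166, 330.3 and 134 CPM in the cultures and 67.3, 15.8 and 46.8 CPM in the kidneys (log2 fold change 2.28 ± 0.48 SE, adjusted p = 0.00141). Krt20 was at 344, 266, 405 and 226 CPM in the cultures and 3.6, 0.334 and 3.54 CPM in the kidneys (log2 fold change 6.97 ± 0.73 SE, adjusted p = 1.01e-05), the largest rise of the 5. For all 5 keratins culture 3 was the highest and culture 4 the lowest culture, and the groups did not overlap. Per gene length, mean levels in the cultures were 2268 TPM for Krt8, 1503 for Krt18, 366 for Krt7, 655 for Krt20 and 456 for Krt19.

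Genes of cell adhesion went in different directions. Epcam was at 125, 124, 148 and 131 CPM in the cultures and 133, 101 and 146 CPM in the kidneys (log2 fold change 0.06 ± 0.21 SE, adjusted p = 0.803). E-cadherin (Cdh1) was at 231, 258, 179 and 339 CPM in the cultures and 251, 250 and 169.7 CPM in the kidneys (log2 fold change 0.17 ± 0.27 SE, adjusted p = 0.594). Neither was called, though both were called higher with library totals as the scale. The kidney-specific cadherin Cdh16 was at 493, 466, 749 and 842 CPM in the cultures and 1256, 1436 and 930.3 CPM in the kidneys (log2 fold change -0.92 ± 0.3 SE, adjusted p = 0.017), a call that was lost without culture 1 or 2 or kidney 1 or 2, with adjusted p-values of 0.051 to 0.0613, and with library totals as the scale (adjusted p = 0.289). N-cadherin (Cdh2) was at 227, 215, 131 and 221 CPM in the cultures and 6.78, 11.2 and 7.03 CPM in the kidneys (log2 fold change 4.57 ± 0.33 SE, adjusted p = 6.53e-07). K-cadherin (Cdh6), known from developing proximal tubule, was at 593, 779, 201 and 546 CPM in the cultures and 6.03, 8.05 and 5.63 CPM in the kidneys, a rise of 80.5-fold (log2 fold change 6.33 ± 0.51 SE, adjusted p = 1.4e-06). Factors of mesenchymal transition differed. Snai1 was at 0.873, 1.75, 0.8 and 0.809 CPM in the cultures and 1.39, 1.39 and 1.73 CPM in the kidneys and Snai2 at 1.16, 1.95, 0.8 and 0.569 CPM in the cultures and 1.04, 0.952 and 2.04 CPM in the kidneys, and neither was called. Zeb1 was up-regulated, at 21.1, 24.8, 7.8 and 14.7 CPM in the cultures and 5.74, 8.1 and 6.42 CPM in the kidneys (log2 fold change 1.34 ± 0.37 SE, adjusted p = 0.00741). Zeb2 was at 46.4, 49.01, 15.99 and 34.3 CPM in the cultures and 16.8, 17.5 and 19.4 CPM in the kidneys (log2 fold change 1.02 ± 0.34 SE, adjusted p = 0.0205). Culture 3 lay in or below the range of the kidneys for both. The call of Zeb2 was lost without culture 1 or kidney 1 (adjusted p = 0.0533 and 0.0682). Twist2 was gained, at 9.23, 10.5, 5.92 and 3.98 CPM in the cultures and 0.162, 0.103 and 0.139 CPM in the kidneys (log2 fold change 5.76 ± 0.5 SE, adjusted p = 2.56e-06). Of 14 tested genes in this list, 8 were up-regulated, 1 was down-regulated and 5 were not called, and the list median (log2 fold change) was 1.09, which became 1.65 with library totals as the scale.

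Claudins, which set paracellular permeability, changed in both directions. Of 10 tested claudins (12 listed), 3 were down-regulated, 5 up-regulated and 2 not called, and the list median (log2 fold change) was 1.1. That median was 0.15 without the filter on low counts, 0.36 over genes of the same identifier version and 2.42 with 12-month kidneys. The proximal pore claudin Cldn2 was at 132, 145, 160.4 and 288 CPM in the cultures and 503, 762 and 363 CPM in the kidneys (log2 fold change -1.58 ± 0.34 SE, adjusted p = 0.00175). Cldn8 of the distal nephron was at 4.82, 4.93, 6.3 and 22.1 CPM in the cultures and 178, 94.8 and 182 CPM in the kidneys (log2 fold change -3.99 ± 0.54 SE, adjusted p = 6.83e-05, and -4.81 without culture 4). Cldn1, whose identifier version differs between the gene sets, was at 324, 308, 199 and 298 CPM in the cultures and 14.4, 22.2 and 12.2 CPM in the kidneys (log2 fold change 4.12 ± 0.32 SE, adjusted p = 1.19e-06). Cldn4 was at 444, 421, 658 and 489.8 CPM in the cultures and 72.2, 24.1 and 74.8 CPM in the kidneys (log2 fold change 3.14 ± 0.41 SE, adjusted p = 5.23e-05). Cldn6, known from embryonic epithelium, was gained, at 22.3, 19.4, 38.1 and 26.4 CPM in the cultures and 1, 1.47 and 0.279 CPM in the kidneys (log2 fold change 4.85 ± 0.51 SE, adjusted p = 9.87e-06).

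Matrix and matricellular genes were up-regulated. Of 29 tested genes, 22 rose, 1 fell and 6 were not called, and the list median (log2 fold change) was 2.46. Fibronectin (Fn1) was at 1300, 1844, 372 and 1180 CPM in the cultures and 10.2, 19.1 and 12.4 CPM in the kidneys (log2 fold change 6.4 ± 0.6 SE, adjusted p = 4.26e-06). Urokinase (Plau), which activates plasminogen, was not called, at 742, 698, 778 and 1013 CPM in the cultures and 779, 879 and 815 CPM in the kidneys (log2 fold change -0.03 ± 0.24 SE, adjusted p = 0.921), while the urokinase receptor Plaur was at 95.01, 66.6, 95.5 and 71.1 CPM in the cultures and 7.58, 2.75 and 10.9 CPM in the kidneys (log2 fold change 3.54 ± 0.43 SE, adjusted p = 2.98e-05). Of the basement membrane collagen IV chains, Col4a1 rose, at 694, 708, 484 and 918 CPM in the cultures and 179, 335 and 121 CPM in the kidneys (log2 fold change 1.73 ± 0.37 SE, adjusted p = 0.0018), and the mature glomerular chain Col4a3 was not called, at 119.6, 134, 49.99 and 273 CPM in the cultures and 138, 226 and 98.3 CPM in the kidneys (log2 fold change -0.1 ± 0.47 SE, adjusted p = 0.869). The inhibitor Timp3 was the member that fell, at 198, 191, 178 and 398 CPM in the cultures and 1671, 2381 and 1202 CPM in the kidneys (log2 fold change -2.86 ± 0.37 SE, adjusted p = 4.39e-05), and its relative Timp1 was gained, at 46.03, 58.2, 56.5 and 34.5 CPM in the cultures and 0.648, 0.36 and 1.78 CPM in the kidneys (log2 fold change 5.71 ± 0.52 SE, adjusted p = 3.58e-06, and 6.6 without kidney 3). Culture 3 was the lowest culture for 24 of the 29 genes.

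Targets of YAP and TEAD, which respond to cell spreading and stiff surfaces, were up-regulated in 10 of 12 cases, and 2 were not called, and the list median (log2 fold change) was 2.77. Connective tissue growth factor (Ccn2) was at 1523, 1215, 1214 and 988 CPM in the cultures and 40.6, 53.3 and 49.8 CPM in the kidneys (log2 fold change 4.69 ± 0.31 SE, adjusted p = 3.29e-07). Ccn1 was at 311, 283, 268 and 260.5 CPM in the cultures and 33.8, 19.3 and 40.3 CPM in the kidneys (log2 fold change 3.17 ± 0.3 SE, adjusted p = 4.6e-06). The ankyrin repeat gene Ankrd1 was at 322, 241, 263 and 192 CPM in the cultures and 4.8, 2.34 and 2.73 CPM in the kidneys and rose 77.5-fold (log2 fold change 6.28 ± 0.38 SE, adjusted p = 2.05e-07). The receptor tyrosine kinase Axl was at 663, 608, 431 and 405 CPM in the cultures and 20.8, 28.3 and 21.7 CPM in the kidneys (log2 fold change 4.48 ± 0.32 SE, adjusted p = 5.34e-07). Each culture exceeded each kidney for these 4 genes.

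The promoters of 2 genes that rose are shown, Ankrd1 for the TEAD letters GGAATG and Plaur for the AP-1 letters TGANTCA. Both are 250 bases upstream of the RefSeq start in GRCm38.p6, 5′ to 3′ on the strand of the gene, and capitals mark the letters.
Ankrd1 (chr19:36119845-36120094, minus strand): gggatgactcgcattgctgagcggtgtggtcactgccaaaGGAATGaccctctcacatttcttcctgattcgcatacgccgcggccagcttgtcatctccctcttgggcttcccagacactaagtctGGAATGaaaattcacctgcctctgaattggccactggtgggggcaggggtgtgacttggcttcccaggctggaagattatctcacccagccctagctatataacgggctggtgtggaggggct
Plaur (chr7:24462233-24462482, plus strand): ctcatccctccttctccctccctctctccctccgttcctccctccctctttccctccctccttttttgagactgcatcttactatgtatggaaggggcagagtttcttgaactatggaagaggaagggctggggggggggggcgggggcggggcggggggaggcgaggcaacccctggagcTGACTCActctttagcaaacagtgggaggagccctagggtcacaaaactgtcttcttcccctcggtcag
In Ankrd1 the letters lie 210 to 205 and 123 to 118 bases before the start, and in Plaur 69 to 63 bases before it. On either strand GGAATG was in 14.6% of all windows, in 12.5% of tested, 15.6% of lost, 13% of reduced, 11.5% of kept, 11.1% of raised and 12% of gained genes, and in 7 of the 9 YAP and TEAD targets that had a window. That list was compiled from known targets, so this share is no independent observation. TGANTCA was in 7.93% of all windows and in 5.45% of tested, 7.59% of lost, 4.59% of reduced, 4.44% of kept, 4.81% of raised and 9.45% of gained genes. Ankrd1 and Plaur are both in the raised class. The printed promoter of Slc3a1, a gene that fell, also holds the letters TGANTCA, which are not capitalised there.

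Cell cycle genes were up-regulated throughout. All 26 proliferation genes rose, 9 of them from under 1 CPM in the kidneys, and the list median (log2 fold change) was 5.84. Mki67, the antigen of cycling cells, was at 317, 395, 127 and 283 CPM in the cultures and 2.01, 3.06 and 2.17 CPM in the kidneys and rose 116-fold (log2 fold change 6.86 ± 0.47 SE, adjusted p = 4.53e-07). Mitotic kinase Plk1 was at 114, 107, 86.1 and 55.6 CPM in the cultures and 0.486, 0.617 and 0.418 CPM in the kidneys, the largest rise (log2 fold change 7.47 ± 0.39 SE, adjusted p = 7.94e-08). Cyclin Ccnb1 was at 135, 124, 99.1 and 67.05 CPM in the cultures and 0.551, 0.437 and 1.06 CPM in the kidneys (log2 fold change 7.28 ± 0.44 SE, adjusted p = 2.08e-07). The replication clamp Pcna was at 209.6, 194, 184 and 108 CPM in the cultures and 51.1, 39.3 and 67.4 CPM in the kidneys (log2 fold change 1.72 ± 0.29 SE, adjusted p = 0.000364). Topoisomerase 2a (Top2a) was at 365, 375, 168 and 203 CPM in the cultures and 2.5, 2.6 and 2.29 CPM in the kidneys (log2 fold change 6.82 ± 0.42 SE, adjusted p = 2.12e-07). Culture 4 was the lowest culture for 22 of the 26 genes and culture 1 the highest for 17.

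Inhibitors of the cell cycle did not move as one. Of 15 genes in the list of inhibitors and p53 targets, 10 were up-regulated, 1 was down-regulated and 4 were not called, and the list median (log2 fold change) was 1.43. Cdkn1a (p21) was at 237, 217, 345 and 240.3 CPM in the cultures and 15.98, 14.4 and 15 CPM in the kidneys and rose 17.2-fold (log2 fold change 4.1 ± 0.27 SE, adjusted p = 3.56e-07). The p16 and p19ARF locus Cdkn2a was at 24.5, 25.1, 36.9 and 21.2 CPM in the cultures and 0, 0 and 0.0558 CPM in the kidneys, and the kidneys held 2 counts in all, so the ratio of 1422 has a 95% counting interval of 394 to 11744. Both genes are in use as markers of senescence, and these cultures had not been irradiated. Gdf15, a secreted stress marker, was at 223, 176, 362 and 276 CPM in the cultures and 11.7, 7.54 and 15.7 CPM in the kidneys (log2 fold change 4.48 ± 0.38 SE, adjusted p = 1.93e-06). Trp53 was at 159.9, 145, 147 and 90.7 CPM in the cultures and 23.5, 23.4 and 16.9 CPM in the kidneys (log2 fold change 2.67 ± 0.27 SE, adjusted p = 8.43e-06). The inhibitor p57 (Cdkn1c), known from podocytes, was the member that fell, at 6.8, 8.63, 8.09 and 7.55 CPM in the cultures and 24.4, 38.6 and 23.2 CPM in the kidneys (log2 fold change -1.89 ± 0.24 SE, adjusted p = 4.68e-05), and p27 (Cdkn1b) was not called, at 46.8, 47.4, 35.9 and 51.7 CPM in the cultures and 57.8, 29.3 and 64.7 CPM in the kidneys (log2 fold change -0.15 ± 0.28 SE, adjusted p = 0.642).

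Cytokines and chemokines went in both directions. Of 23 tested genes (27 listed), 15 were up-regulated (8 of the list were gained), 7 were down-regulated and 1 was not called, and the list median (log2 fold change) was 1.65. The neutrophil attractants Cxcl1 and Cxcl2 rose. Cxcl1 was at 40.7, 30.1, 38.6 and 38.7 CPM in the cultures and 0.746, 0.0772 and 1.42 CPM in the kidneys (log2 fold change 5.63 ± 0.64 SE, adjusted p = 1.76e-05, and 6.54 without kidney 3). Cxcl2 was at 26.7, 16.4, 21.4 and 14.4 CPM in the cultures and 0.259, 0.0257 and 0.251 CPM in the kidneys (log2 fold change 6.8 ± 0.55 SE, adjusted p = 1.36e-06). The macrophage growth factor Csf1 was at 164, 149, 144 and 145 CPM in the cultures and 6.74, 8.9 and 8.06 CPM in the kidneys (log2 fold change 4.25 ± 0.24 SE, adjusted p = 1.33e-07). The monocyte attractant Ccl2 was at 20.5, 18.1, 14.5 and 16.3 CPM in the cultures and 0.746, 0.206 and 3.1 CPM in the kidneys (log2 fold change 3.68 ± 0.67 SE, adjusted p = 0.000573, and 5.21 without kidney 3). Leukemia inhibitory factor (Lif) was at 33.1, 29.1, 21.6 and 23.5 CPM in the cultures and 0.195, 0.257 and 0.195 CPM in the kidneys (log2 fold change 6.93 ± 0.34 SE, adjusted p = 5.29e-08). The homeostatic chemokines Cxcl12 and Cxcl14 fell. Cxcl12 was at 10.8, 22, 4.7 and 9.47 CPM in the cultures and 124, 131 and 144 CPM in the kidneys (log2 fold change -3.5 ± 0.42 SE, adjusted p = 2.78e-05). Cxcl14 was at 0.794, 1.2, 1.02 and 0.899 CPM in the cultures and 14.6, 20.8 and 21.6 CPM in the kidneys (log2 fold change -4.28 ± 0.28 SE, adjusted p = 3.4e-07). Il1b had 0 counts in the cultures and 0.94, 0.695 and 2.31 CPM in the kidneys, at least 60.7-fold lower. Mif, a ligand of Cd74, was not called, at 167, 188, 329.8 and 174 CPM in the cultures and 256, 276 and 221 CPM in the kidneys (log2 fold change -0.23 ± 0.28 SE, adjusted p = 0.493), except without culture 3, where it was lower (adjusted p = 0.0235), and Il6 was too low to be tested, at 0.0265, 0.223, 0.064 and 0.0599 CPM in the cultures and 0.0648, 0 and 0.139 CPM in the kidneys.

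Of 12 tested immediate early genes, which respond quickly to handling and growth factors, 8 were up-regulated, 2 were down-regulated and 2 were not called, and the list median (log2 fold change) was 1.15, which became -0.62 with 24-month kidneys as the controls. When each library was left out in turn, 1 to 2 were down-regulated. Junb was at 149.9, 127, 159 and 107 CPM in the cultures and 29.8, 18.1 and 29.1 CPM in the kidneys (log2 fold change 2.41 ± 0.27 SE, adjusted p = 1.59e-05). Fos was at 3.78, 4.4, 4.25 and 5.6 CPM in the cultures and 0.94, 0.695 and 1.73 CPM in the kidneys (log2 fold change 2.0 ± 0.38 SE, adjusted p = 0.0007). With 24-month kidneys as the controls Fos was called lower (log2 fold change -3.41). The heat shock gene Hspa1a was among those that fell, at 4.87, 3.9, 10.7 and 12.6 CPM in the cultures and 47.5, 13.01 and 33.05 CPM in the kidneys (log2 fold change -1.96 ± 0.48 SE, adjusted p = 0.00373), which became 0.71 with 12-month kidneys. It shares reads with its near-identical copy Hspa1b.

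Glycolysis genes were more often higher than lower. Of 17 genes, 9 were up-regulated, 2 were down-regulated and 6 were not called, and the list median (log2 fold change) was 0.95, which became 1.5 with library totals as the scale and 0.57 with 24-month kidneys. When each library was left out in turn, 1 to 3 were down-regulated. Hexokinase 2 (Hk2) was at 156, 159, 101 and 109 CPM in the cultures and 1.14, 0.695 and 2.09 CPM in the kidneys and rose 100-fold (log2 fold change 6.64 ± 0.44 SE, adjusted p = 3.7e-07). The glucose carrier Glut1 (Slc2a1) was at 298, 254, 397 and 405 CPM in the cultures and 67.4, 80.5 and 67.5 CPM in the kidneys (log2 fold change 2.24 ± 0.26 SE, adjusted p = 2.24e-05). Pyruvate kinase Pkm was at 1885, 1897, 2836 and 1596 CPM in the cultures and 321, 362 and 246 CPM in the kidneys (log2 fold change 2.73 ± 0.32 SE, adjusted p = 2.07e-05). The lactate exporter Slc16a3 was at 23.1, 46.5, 60.1 and 53.3 CPM in the cultures and 2.72, 0.746 and 2.12 CPM in the kidneys (log2 fold change 4.62 ± 0.5 SE, adjusted p = 1.18e-05). The enzyme Gapdh was not called, at 1297, 1293, 2073 and 1225 CPM in the cultures and 1526, 1926 and 1024 CPM in the kidneys (log2 fold change -0.02 ± 0.31 SE, adjusted p = 0.959), nor was Ldha, at 919, 992, 1505 and 854 CPM in the cultures and 1125, 1109 and 1295 CPM in the kidneys (log2 fold change -0.14 ± 0.27 SE, adjusted p = 0.667). Culture 3 was the highest culture for 12 of the 17 genes.

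Cholesterol synthesis and uptake genes were up-regulated in 9 of 16 cases and down-regulated in 2, and the list median (log2 fold change) was 0.85, which became 1.4 with library totals as the scale. When each library was left out in turn, 1 to 2 were down-regulated. Farnesyl diphosphate synthase (Fdps) was at 44.9, 43.4, 71.5 and 34.1 CPM in the cultures and 5.35, 4.86 and 4.43 CPM in the kidneys (log2 fold change 3.31 ± 0.3 SE, adjusted p = 3.52e-06). The lanosterol demethylase Cyp51 fell and was at 256, 239, 217 and 180.3 CPM in the cultures and 499.9, 645 and 601 CPM in the kidneys (log2 fold change -1.38 ± 0.23 SE, adjusted p = 0.000313). Each culture stood above each kidney for Fdps and below each kidney for Cyp51. Antioxidant genes divided. Of 15, 7 were down-regulated and 6 up-regulated, and the list median (log2 fold change) was -0.37, which became 0.18 with library totals as the scale. Plasma glutathione peroxidase (Gpx3), made by the proximal tubule, was at 1812, 1822, 2447 and 2677 CPM in the cultures and 18458, 22198 and 14094 CPM in the kidneys (log2 fold change -3.06 ± 0.32 SE, adjusted p = 9.06e-06). Catalase (Cat) was at 263, 205, 260 and 243 CPM in the cultures and 1218, 1727 and 1172 CPM in the kidneys (log2 fold change -2.5 ± 0.25 SE, adjusted p = 8.18e-06). The cystine importer Slc7a11 was at 116, 56.7, 64.4 and 77.1 CPM in the cultures and 0.227, 0.0772 and 0.167 CPM in the kidneys and rose 500.5-fold (log2 fold change 8.97 ± 0.47 SE, adjusted p = 8.05e-08), and haem oxygenase (Hmox1) was at 216, 175, 267 and 129 CPM in the cultures and 59.7, 58.98 and 59.5 CPM in the kidneys (log2 fold change 1.73 ± 0.27 SE, adjusted p = 0.000205). Of 10 ribosomal protein genes, 1 was up-regulated and 9 were not called, and the list median (log2 fold change) was 0.01. That 1 call was lost with scaling by RLE or the upper quartile, and 0 to 1 were up-regulated when each library was left out in turn.

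The genes with the largest fitted changes were sought among called genes with at least 10 CPM in the higher group, groups that do not overlap and the same identifier version in both gene sets. All 10 largest falls had 0 or 1 count in the cultures. Cyp2a4, a steroid hydroxylase, was at 1012, 1234 and 1164 CPM in the kidneys and had 0 counts in PTEC, at least 52411-fold lower. The others were Akr1c21, Slco1a1 and Hbb-bs, named above, the organic anion carriers Slc22a19, Slc22a28 and Slc22a30, the glycosyltransferase Ugt3a1, the methyltransferase Bhmt2 and dimethylglycine dehydrogenase (Dmgdh). Slc22a30 had 0 counts in PTEC and 277, 203 and 341 CPM in the kidneys, and Dmgdh 0 counts and 179, 254 and 142 CPM. Several members of these carrier and cytochrome families are close paralogs that may share reads.

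Among the 10 largest rises, Serpinb9b, a serine protease inhibitor, was at 273, 115, 243 and 154 CPM in the cultures and 0, 0.0257 and 0.0279 CPM in the kidneys, and the kidneys held 2 counts in all, a ratio of 10370 with a 95% counting interval of 2871 to 85628. The cytokine Il24 was at 23.2, 17.6, 21.6 and 9.29 CPM in the cultures with 0 counts in the kidneys, at least 631-fold higher. The chloride channel regulator Clca3b was at 15.1, 13.9, 9.34 and 14.4 CPM with 0 counts in the kidneys, at least 465-fold higher. Wnt7a, a secreted Wnt ligand, was at 68.8, 70.4, 71.7 and 74.3 CPM in the cultures and 0.0648, 0.18 and 0.0279 CPM in the kidneys (log2 fold change 9.51 ± 0.44 SE, adjusted p = 3.82e-08, and 10.51 without kidney 2), and its 4 cultures lay close together. Hmga2, an architectural factor of fetal and proliferating cells, was at 140.4, 90.4, 73.8 and 50.9 CPM in the cultures and 0.259, 0.0514 and 0.0279 CPM in the kidneys (log2 fold change 9.66 ± 0.65 SE, adjusted p = 4.23e-07, and 10.98 without kidney 1). The cation channel Trpa1 was at 62.8, 49.8, 18.1 and 15.5 CPM with 1 count in the kidneys, a ratio of 3857 with a 95% counting interval of 692 to 152325, and the neurotensin receptor Ntsr1 at 2.2, 1.39, 15.1 and 27.1 CPM with 0 counts in the kidneys. Cultures 1 and 2 were the higher ones for Trpa1, and cultures 3 and 4 for Ntsr1. Gpr50, Cdkn2a and Slc7a11 complete the 10, and Gpr50 was at 13.04, 15.98, 5.15 and 7.04 CPM with 0 counts in the kidneys.

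**Figure D4:**
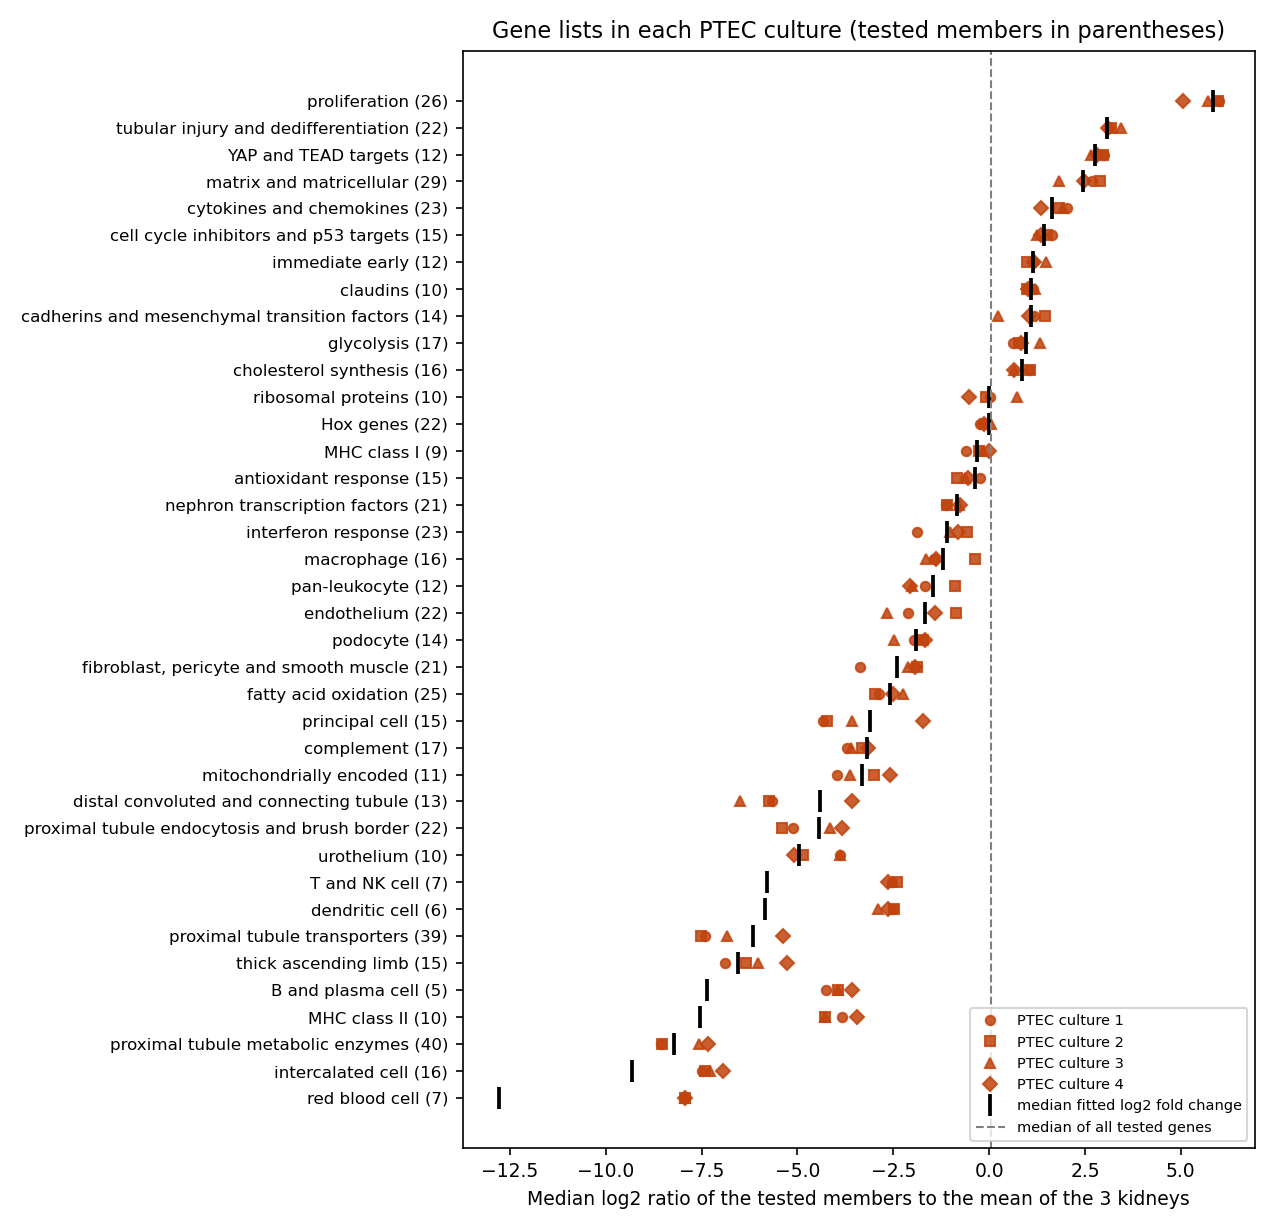
Median log2 ratio of the tested members of each of 38 gene lists to the mean of the 3 kidneys, per PTEC culture, from log2(CPM + 0.1), with the median fitted log2 fold change (black bar) and the median of all tested genes (dashed line). The fitted bar lies to the left of the cultures for red blood cell, intercalated cell, MHC class II, B and plasma cell, dendritic cell and T and NK cell genes, many of which have counts at or near 0 in PTEC, where the pseudocount limits the ratio.

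The 4 cultures differed from each other in a patterned way. Culture 4 was the highest culture for 67 of 96 genes of the 3 proximal tubule lists whose levels differ among cultures (69.8%) and for 48 of 57 genes of the 4 distal nephron lists (84.2%), against 26.2% over all tested genes. Culture 2 was the lowest for 55 of the 96 proximal genes (57.3%, against 18% over all tested genes). The mitochondrial share was also highest in culture 4. Over the 3 proximal lists 94 of 101 tested genes were down-regulated, 3 up-regulated and 4 not called, with 27 lost, and over the 4 distal lists 50 of 59 were down-regulated and 9 not called, with 23 lost. These counts describe 1 library each, and genes of a library are not independent replicates.

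With cultures 1 and 2 alone, 5800 genes were lower and 5210 higher than in the kidneys. Of 204 named genes, 3 lost and 7 gained a call in that fit, and 8 uncalled but no called ones changed sign. The medians of all 7 proximal and distal nephron lists were then further below 0, for example -7.54 for proximal transporters and -4.38 for principal cell genes. No median of the 7 lists changed its sign when any single library was left out.

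**Figure D5:**
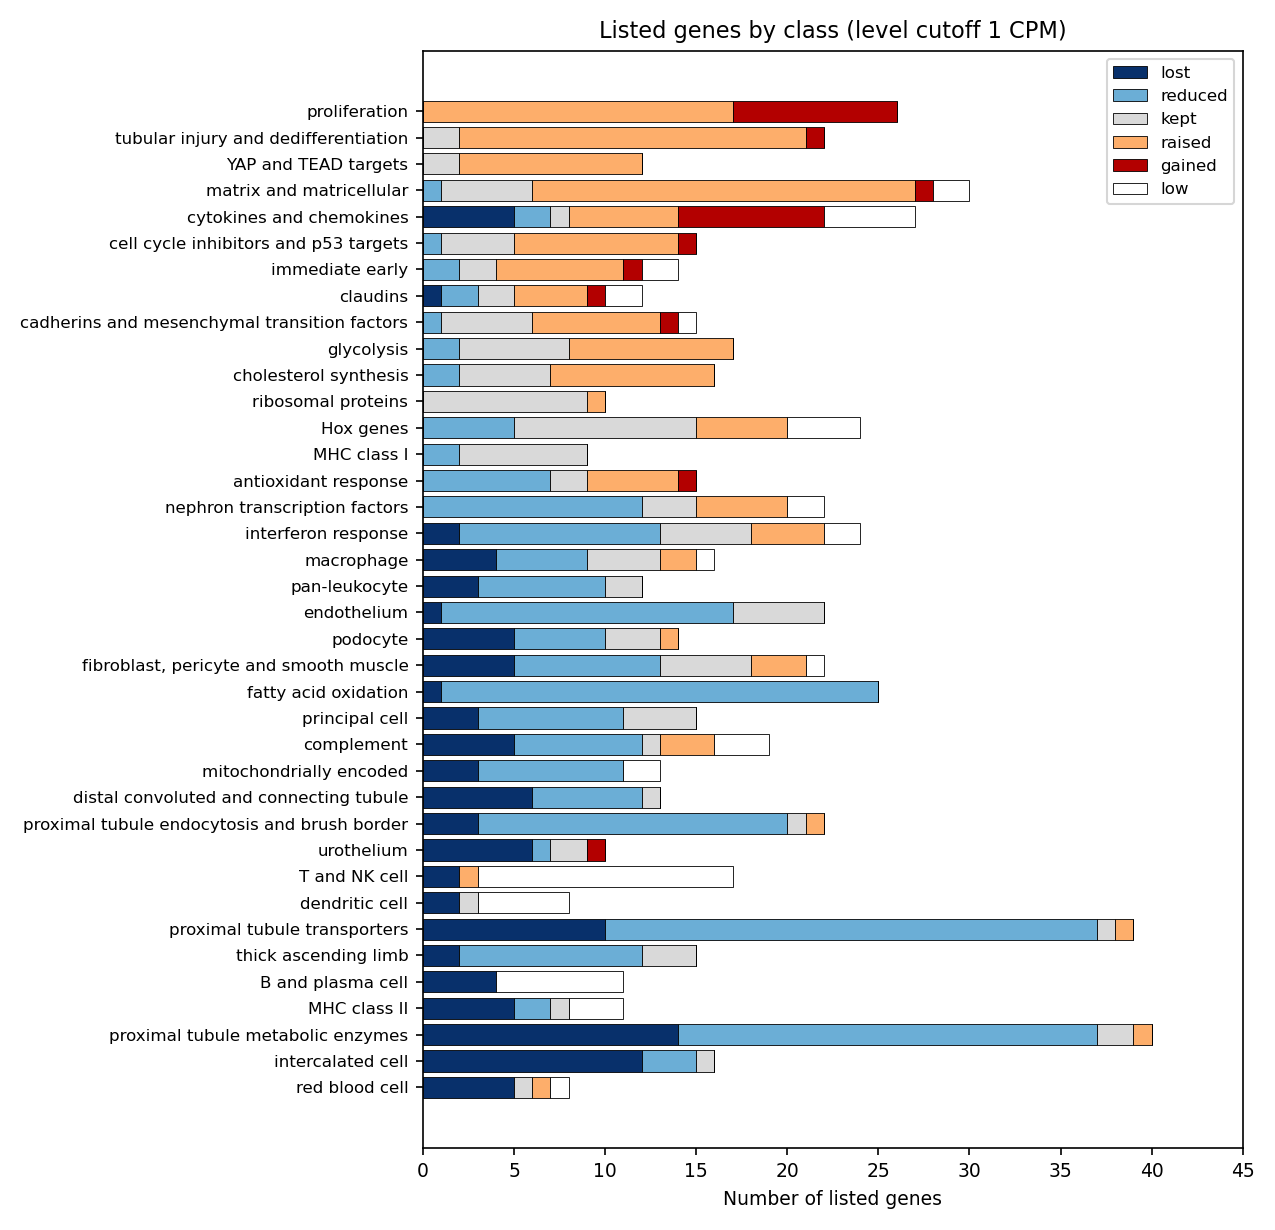
Number of listed genes in each class (lost, reduced, kept, raised, gained or low, with 1 CPM as the level boundary), for 38 gene lists ordered by median log2 fold change. Lost and reduced genes fill most nephron lists, kept genes most of MHC class I and ribosomal proteins, and raised or gained genes most of proliferation, injury and YAP and TEAD targets.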

How the data were processed

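Raw read counts per gene had been deposited by the authors, 1 file per library, from directional poly(A) libraries sequenced as paired ends. Per the submitters' notes and the study's methods, reads were processed with nf-core/rnaseq 1.4.2 on GRCm38 with GENCODE M18 annotation. The aligner, the counter and the strand setting are not given in the sources used here. The files hold different gene sets, with 53715 genes for PTEC and 54146 for 3-month kidneys. Counts were joined on Ensembl identifiers with the version dropped, which left 53684 genes, of which 590 differ in version. At most 0.0154% of counts lay on unshared genes. Symbols, biotypes and lengths came from GENCODE M21, promoters from RefSeq (GRCm38.p6).

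The 4 PTEC and 3 kidney libraries were fitted with edgeR 4.0.16 in R 4.3.3 (filterByExpr, TMM, robust quasi-likelihood fit and test, no covariates), and p-values were adjusted by Benjamini-Hochberg over 16190 genes. Calls needed an adjusted p under 0.05 together with a log2 fold change beyond 0.5. Levels are TMM-scaled CPM, and TPM was computed from the counts and gene lengths. For a group with 0 counts, a fold is a bound computed with 3 counts over the group. Groups with 1 to 3 counts are given as a ratio with an exact 95% Poisson interval. Intervals and bounds cover counting error only. In every list, a tested gene with 0 to 3 counts in 1 group passed the filter through the other group alone, which fixed its direction. In data simulated for the same 4 against 3 libraries and 15836 genes, the fit recovered 91 of 99 genes changed by a log2 fold change of 2 and 16 of 100 changed by 1, with 8 false calls. Only those genes were changed in the simulation, up and down alike, whereas 5286 genes were called lower and 5339 higher here. It therefore does not measure the error of the fit where most genes change.

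The 39 gene lists (683 genes, with sex-linked genes as 1 list) and the members were chosen with earlier results of these data known. Named genes were the 4 segment markers, genes that the study names, the 10 largest rises and falls, and members of the lists by level, fold change or opposite direction. Further members were named for their role after their values were seen. Alternatives were other scalings (RLE, upper quartile, library totals), filters (none, 5 CPM), DESeq2 1.42.0, limma 3.58.1 (voom), a replicate block, each library left out, genes of the same version, all 5 groups in the fit, 12- and 24-month kidneys as controls, no mitochondrial genes, and fold change thresholds of 1 and 2. Cultures 1 and 2 alone, and genes that overlap an unshared gene left out, were chosen after seeing the data. Some genes and loci are not reported here.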

Additional observations from a re-analysis of the deposited data

Results flagged for a closer look

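Among the 4 cultures, a value was singled out where the gap between the extreme culture and its neighbour was above the 95% critical share of the whole range (Dixon's criterion). For independent values with a normal distribution, chance does this in about 1 in 20 groups, or 5%. CPM need not follow that distribution, and genes of a library are not independent. The share of named genes that met the criterion is therefore no test against 5%. Of 191 named genes examined, 23 met the criterion (12%), 14 of them through a high value in culture 4. The 191 do not hold all of the 204 named genes that were tested in the fit. Groups of 3 kidneys were not examined in this way.

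Culture 4 was high for the proximal tubule genes Lrp2 (437.8 CPM), Cubn (34.3 CPM), Slc22a8 (0.2097 CPM), Slc4a4 (529.8 CPM) and Kl (13.51 CPM) and for the coactivator Ppargc1a (30.98 CPM). It was also high for the distal nephron genes Aqp2 (0.7789 CPM), Slc12a1 (14.32 CPM), Kcnj1 (6.082 CPM), Scnn1g (13.21 CPM), Npnt (355.3 CPM) and Cldn8 (22.05 CPM), for Timp3 (398.3 CPM) and for Xist (472.4 CPM). Culture 3 was high for Slc9a3r1 (269.3 CPM), H2-DMb2 (3.358 CPM), Mif (329.8 CPM), Gapdh (2073 CPM) and Mep1b (0.03198 CPM, a single count). It was low for Clcn5 (129.5 CPM) and Cdh2 (131.4 CPM). Culture 2 was high for Snai1 (1.754 CPM) and for Akr1c21 (0.02784 CPM, a single count).

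Of 38 lists, 6 met the criterion on their summed level. Culture 4 was high for proximal tubule endocytosis and brush border (2082 CPM), principal cell genes (932.3 CPM) and nephron transcription factors (1180 CPM). Culture 2 was high for pan-leukocyte genes (65.83 CPM), culture 3 was high for glycolysis (14290 CPM) and culture 1 was low for Hox genes (425.9 CPM). What sets these cultures apart was not tested.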

How the results depend on the processing

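No alternative changed the counts of 5286 lower and 5339 higher genes by more than 1.5 times except a log2 fold change threshold of 2 (2739 lower and 1937 higher). Leaving out each library gave 4799 to 5624 lower and 4420 to 5431 higher genes. With a level boundary of 5 CPM, 4510 genes were too low for a class. List medians that moved by more than their spread are given here, and the cause was not tested. With library totals as the scale they were -8.78 for intercalated cell, -0.92 for pan-leukocyte, -5.44 for dendritic cell, -5.33 for T and NK cell, -0.29 for nephron transcription factors, 0.54 for Hox genes, -2.05 for fatty acid oxidation, 1.5 for glycolysis, 1.65 for cadherins and mesenchymal transition factors, 1.64 for claudins, 3.02 for matrix and matricellular, 3.31 for YAP and TEAD targets, 6.38 for proliferation, 1.98 for cell cycle inhibitors and p53 targets, 2.2 for cytokines and chemokines, 0.26 for MHC class I, -7.12 for MHC class II, -2.63 for complement, 1.7 for immediate early, 0.18 for antioxidant response and 1.4 for cholesterol synthesis, and those of Hox genes, MHC class I and antioxidant response changed sign. Without a filter on low counts they were -6.51 for dendritic cell, -5.6 for B and plasma cell, -11.79 for red blood cell, 0.15 for claudins and -4.15 for complement, and with a filter at 5 CPM -6.46 for urothelium, 1.75 for claudins and -3.99 for complement. DESeq2 gave -6.15 for T and NK cell and -12.28 for red blood cell, and limma voom -4.61 for dendritic cell, -4.95 for T and NK cell, -6.22 for B and plasma cell, -10.73 for red blood cell and -5.81 for MHC class II. Genes of the same identifier version gave -5.65 for thick ascending limb and 0.36 for claudins, and all 5 groups in the fit -6.64 for T and NK cell. With 12-month kidneys the medians were -6.18 for distal convoluted and connecting tubule, -8.71 for intercalated cell, -2.28 for pan-leukocyte, -7.84 for dendritic cell, -7.93 for T and NK cell, -8.18 for B and plasma cell, -13.38 for red blood cell, 2.02 for urothelium, 4.68 for tubular injury and dedifferentiation, 2.42 for claudins, 6.43 for proliferation, 2.09 for cell cycle inhibitors and p53 targets, 1.3 for cytokines and chemokines, -8.49 for MHC class II, -5.45 for complement, 1.97 for immediate early and 0.14 for antioxidant response, of which those of urothelium and antioxidant response changed sign, and 3 called and 11 uncalled named genes changed sign, those that moved furthest being at 0.52 for Sgk1, 1.01 for Npnt, -0.0835 for Lck, 0.93 for Itgb6 and 0.71 for Hspa1a, of which Npnt and Itgb6 were then called higher. With 24-month kidneys they were -5.84 for thick ascending limb, -6.58 for distal convoluted and connecting tubule, -8.8 for intercalated cell, -2.76 for pan-leukocyte, -2.08 for macrophage, -7.61 for dendritic cell, -8.37 for T and NK cell, -8.68 for B and plasma cell, 0.57 for glycolysis, 3.76 for tubular injury and dedifferentiation, 1.88 for matrix and matricellular, 1.65 for YAP and TEAD targets, 4.56 for proliferation, 0.92 for cytokines and chemokines, -8.54 for MHC class II, -5.27 for complement and -0.62 for immediate early, of which that of immediate early genes changed sign, and 2 called and 10 uncalled named genes changed sign, the called ones being -0.55 for Cyp27b1 and -3.41 for Fos. Cultures 1 and 2 alone gave -5.36 for proximal tubule endocytosis and brush border, -7.54 for proximal tubule transporters, -8.9 for proximal tubule metabolic enzymes, -7.68 for thick ascending limb, -6.31 for distal convoluted and connecting tubule, -4.38 for principal cell, -10.07 for intercalated cell, -6.6 for T and NK cell, -0.31 for Hox genes, -2.99 for fatty acid oxidation and -3.75 for complement. With each library left out in turn, the medians ranged from -7.08 to -5.46 for T and NK cell, -7.25 to -5.84 for proximal tubule transporters, -5.73 to -4.18 for distal convoluted and connecting tubule, -9.79 to -9.01 for intercalated cell, -12.93 to -11.85 for red blood cell, -0.23 to 0.0371 for Hox genes, -4.13 to -2.82 for principal cell and -7.79 to -6.61 for B and plasma cell. Among these fits with 1 library left out, the medians of proximal tubule transporters, distal convoluted and connecting tubule, principal cell and intercalated cell genes were lowest without culture 4. Replicate numbers were not taken as pairs, since the labels do not tie a culture to a kidney. Deviations from the group means correlated by -0.066, 0.123 and 0.202 for same-numbered libraries and by -0.229 to 0.109 for the others. With so few libraries these values cannot settle whether samples are paired. With the replicate number as a block, 5276 genes were lower and 5288 higher, the medians were -7.48 for proximal tubule transporters, -5.72 for distal convoluted and connecting tubule, -9.8 for intercalated cell and -5.49 for T and NK cell, Sgk1, Lck and Zeb2 lost their call and Slc6a18, Cldn19, Kit and Col4a3 gained one. With library totals as the scale, Dab2, Slc9a3r1, Slc4a4, Abcc2, Hadha, Sgk1, Pecam1, Ptprc and Cdh16 lost their call, and Trpm6, Acta2, H2-DMb2, B2m, Clu, Epcam and Cdh1 were then called higher. Under that scale 19 of 204 named genes, none of them called in either fit, moved from below to above 0, and no called gene changed sign. T and NK, B and dendritic cell genes rest on few counts, and their medians at the bounds are given beside the fitted ones.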
